A study of Mus musculus with 9 samples.

Results

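Messenger RNA of the renal cortex was compared between mice with bilateral ischemia-reperfusion injury (bIRI) treated with vehicle and sham-operated mice. The comparison used 6 of the 9 libraries of the series, 3 in each group. It covered the 15453 genes, of 34669 in the deposited table, whose mean was at least 0.5 FPKM (fragments per kilobase of gene and per M fragments, M for mega) over all 9 libraries, and the other 19216 genes were not tested. All mice were male, wild-type C57BL/6 animals aged 10 weeks. In the vehicle group both renal pedicles were clamped for 30 min, and vehicle was gavaged daily, starting 3 days ahead of surgery and ending when the cortex was taken on day 14. Sham mice had the operation with no clamp. The labels do not say whether sham mice were gavaged or when their kidneys were taken. Clamping, gavage and day therefore cannot be told apart. No uninjured kidney supports the animal in this model. The labels do not say whether each library came from 1 mouse, and p-values reflect only the spread between these samples. The 3 remaining libraries, from injured mice given the compound TJ0113, entered the fit to help estimate the spread.

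Ischemia injures above all the proximal tubule, the segment that reclaims most of the glomerular filtrate and depends on oxidative metabolism. Injured tubule cells lose their differentiated state and switch on repair genes, and those that do not recover are known to draw in macrophages and fibroblasts. The series title names the transition from acute kidney injury to chronic kidney disease. In RNA from whole cortex, fewer cells of a type and less RNA per cell cannot be told apart.

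Values are FPKM as deposited, given for libraries 1, 2 and 3 of each group in that order. A change is the difference between the group means of log2(FPKM + 1), vehicle minus sham, relative to the median gene, which was itself 0.30 higher in vehicle. A change of 1 is a 2-fold difference for a well-expressed gene, and the added 1 understates the change of genes near 0. The value after ± is its standard error, with 3 libraries a group. In a list of genes, the median change given in brackets is over all its tested members, where the median of all genes is 0. A gene passed when limma's Benjamini-Hochberg adjusted p over all 15453 genes was under 0.05, and only such genes are said to rise, fall or change. The test itself asked whether the change before that subtraction differed from 0. Because the 2 groups differ in their overall distribution, the calls were also made after scaling to equal FPKM sums, after median-ratio scaling and after quantile normalization. The number of calls held in these and in the deposited values, 4 scalings in all, is given beside the counts. It was added after the data were seen. This number can only be at or below the reported count. Single scalings could give more calls: lower calls numbered 837 as reported, 2359 after median-ratio scaling and 2320 after quantile normalization. Of the genes named below, Fgg, Col4a1, Col4a2, Timp2, Psme2, Cyp4a12b, Gapdh, Pla2g12b, Cox6b2, A4galt, Slc29a3, Pdpr, Slc25a48 and Socs2 were chosen after their values were seen, and the others by rule.

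The depth implied by the values was 34.3 to 36.7 M reads a library, and so similar in both groups. The vehicle libraries were spread more widely than the sham libraries. On the first principal component, with 75.5% of the variance, the sham libraries lay between -61.7 and -52.5, vehicle library 2 at -8.0, and vehicle libraries 1 and 3 at 30.8 and 70.6. Vehicle library 2 was the one nearest to sham for 80.4% of the genes called higher and 72% of those called lower, and vehicle library 3 the farthest for 88.9% and 75.6%. Markers of fat tissue summed to 200 FPKM in sham library 2 and to 0.865 and 0.738 FPKM in the other sham libraries, against 44.1, 0.195 and 112 FPKM in vehicle. Urothelial markers summed to 3.77 to 8.59 FPKM in sham and 2.46, 0.0812 and 36.5 FPKM in vehicle. Markers of skeletal muscle and adrenal gland summed to at most 0.551 FPKM in any of the 6 libraries. Fat markers were thus highest in 1 sham and 1 vehicle library and urothelial markers in vehicle library 3, and none of the 10 tested markers of blood, adrenal gland, muscle and fat was called. Their part in the results was not tested.

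Of the 15453 genes, 5676 passed (36.7%), 4839 of them higher in vehicle (31.3%) and 837 lower (5.42%). The sham and vehicle libraries did not overlap for 8777 genes (56.8%), with vehicle above sham for 7100 and below it for 1677. Of the calls, 1873 higher (12.1% of tested genes) and 553 lower (3.58%) held in all 4 scalings. The counts changed with the libraries in the fit: higher calls fell to 743 and lower calls to 119 without sham library 2, and to 892 and 130 without sham library 3. In contrast, 7427 and 1362 genes passed without vehicle library 2. Without TJ0113 library 1, which is outside the comparison, 3876 were higher and 649 lower. Each such fit has fewer libraries and its own estimate of the spread. A lost call therefore does not show that it rested on the values of the library left out. In all 9 fits that each left out 1 library, 687 genes stayed higher and 90 stayed lower. Protein-coding genes made up 4465 of the higher and 662 of the lower calls. Of 350 long intergenic noncoding RNAs, 43 were higher and 46 lower.

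**Figure D1:**
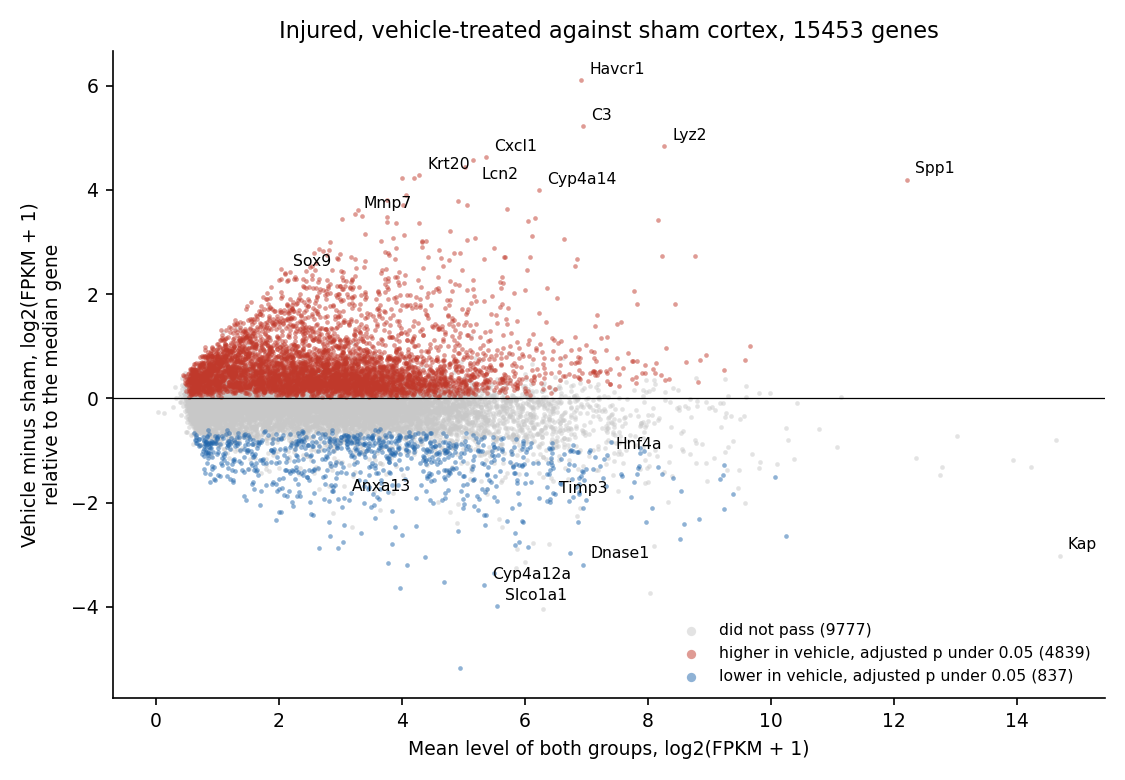
Each point is 1 of the 15453 tested genes. The horizontal axis is the mean of both groups as log2(FPKM + 1), and the vertical axis is the change of vehicle against sham relative to the median gene; 4839 genes passed as higher (red) and 837 as lower (blue). Havcr1 lies highest, and Kap, the most abundant gene of sham cortex among those labelled, lies far down without passing.

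Among the genes that passed, 190 were at least 4-fold above the median gene and 62 at least 4-fold below it. The largest rise was that of Havcr1, which encodes KIM-1, a phosphatidylserine receptor of injured proximal tubule. It was at 1.67, 1.34 and 1.82 FPKM in sham and 328, 119.6 and 266 FPKM in vehicle, a change of 6.10 ± 0.49, adjusted p = 0.00149. Lcn2, which encodes the iron-scavenging injury protein NGAL, was at 1.33, 0.454 and 1.6 FPKM in sham and 66.4, 27.6 and 111 FPKM in vehicle (4.56 ± 0.56, adjusted p = 0.00398). For both genes the lowest vehicle library, number 2, lay far above every sham library. C3, the central complement component, changed by 5.22 ± 0.48, Serpina10, an inhibitor of coagulation factor Xa, by 4.23 ± 0.45, and Vcam1, which binds leukocytes, by 3.90 ± 0.38. Aoc1, the diamine oxidase that degrades histamine and putrescine, was at 1.43, 0.82 and 1.43 FPKM in sham and 60.4, 35 and 91.2 FPKM in vehicle (4.44 ± 0.38, adjusted p = 0.00149). The calls of Havcr1, Lcn2, C3, Serpina10, Vcam1 and Aoc1 held in all 9 fits that left out 1 library.

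The largest falls of protein-coding genes named here were in metabolic and secretory genes of the tubule. Slco1a1, an organic anion transporter, was at 63.3, 73.6 and 110.0 FPKM in sham and 10.2, 17.4 and 0.214 FPKM in vehicle (-3.98 ± 0.97, adjusted p = 0.0219). Cyp4a12a, an androgen-dependent fatty acid hydroxylase in the mouse kidney, was at 71.1, 46.1 and 99.6 FPKM in sham and 4.74, 9.25 and 5.31 FPKM in vehicle (-3.58 ± 0.29, adjusted p = 0.00149). Slco1a1 was nearly absent from vehicle library 3, whereas Cyp4a12a was similarly low in every vehicle library. Reads of Cyp4a12a can be shared with its paralog Cyp4a12b, which did not pass and was at 3.56, 4.93 and 5.51 FPKM in sham and 6.77, 11.2 and 7.98 FPKM in vehicle. Dnase1, a secreted nuclease, was at 214, 217 and 207 FPKM in sham and 22.1, 52.9 and 18.1 FPKM in vehicle (-3.19 ± 0.44, adjusted p = 0.00753). Akr1c18, a hydroxysteroid dehydrogenase, changed by -3.63 ± 0.87, and Azgp1, a secreted zinc-binding glycoprotein, by -3.34 ± 0.69. Pzp, a broad protease inhibitor, changed by -3.20 ± 0.75. The pseudogene Gm6300 (-5.18) had the largest fall of all, and reads of a pseudogene can belong to its parent. When single libraries were left out, Slco1a1, Akr1c18, Azgp1 and Pzp missed the threshold at least once, with a highest adjusted p of 0.0561 to 0.0748, without sham library 3 for Slco1a1 and Akr1c18 and without sham library 2 for Azgp1 and Pzp, and Cyp4a12a, Dnase1 and Gm6300 passed in all of these fits.

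A further 15 genes were under 0.1 FPKM in every sham library and at 1 FPKM or more in every vehicle library. No tested gene showed the reverse. The filter favoured the first direction, since most of the 9 libraries that it averaged came from injured mice, so the 2 directions cannot be compared. A sham mean under 0.5 FPKM was found in 1436 tested genes, and a vehicle mean under 0.5 FPKM in 188. The 15 genes were led by Sprr2f, a small proline-rich protein of barrier epithelia. It was at 0.0447, 0 and 0.0944 FPKM in sham and 19.5, 3.47 and 32.3 FPKM in vehicle. Mmp7, the epithelial metalloprotease matrilysin, was at 0.0383, 0.0136 and 0.0269 FPKM in sham and 21.8, 4.4 and 24.1 FPKM in vehicle. Cxcl2, a neutrophil-attracting chemokine, was at 0, 0.0281 and 0.0278 FPKM in sham and 14.4, 5.9 and 22.7 FPKM in vehicle. The changes of these 3 genes were 3.50 ± 1.03, 3.53 ± 0.63 and 3.44 ± 0.64. Their gap from sham, also in vehicle library 2, the lowest, follows from how they were chosen. All 15 genes were chosen for that gap, so their calls, also with 1 library left out, add no separate support. Cxcl5, Ccl7 and Cxcl17, which are chemokines, Il1f6, an interleukin-1 family cytokine, Trem2, a lipid-sensing receptor of macrophages, Lgi2 and Arhgap36 made up the 10 most abundant. Over the 9 fits that each left out 1 library, Sprr2f and Trem2 missed the threshold at least once, with a highest adjusted p of 0.0623 to 0.0778, without vehicle library 3 for Sprr2f and without sham library 3 for Trem2, and Mmp7, Cxcl2, Cxcl5, Ccl7, Cxcl17, Il1f6, Lgi2 and Arhgap36 passed in all of these fits.

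The 100 bases before the start sites of 3 genes that rose are printed because they hold the motifs of factors known for inflammation and for stress. They are RefSeq promoters on GRCm38.p6: Cxcl1 at chr5:90891145-90891244 (plus strand), Cxcl2 at chr5:90903799-90903898 (plus strand) and Mmp7 at chr9:7691990-7692089 (plus strand). Capitals mark matches on either strand to NF-kappaB (GGNNNTTCC) in Cxcl1 and Cxcl2 and to AP-1 (TGANTCA) in Mmp7.
Cxcl1: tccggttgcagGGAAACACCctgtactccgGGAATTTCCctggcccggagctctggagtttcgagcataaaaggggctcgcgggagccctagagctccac
Cxcl2: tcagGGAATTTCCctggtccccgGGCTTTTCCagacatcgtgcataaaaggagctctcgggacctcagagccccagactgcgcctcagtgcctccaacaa
Mmp7: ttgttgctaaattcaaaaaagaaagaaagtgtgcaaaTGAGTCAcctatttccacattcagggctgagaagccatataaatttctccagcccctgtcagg
The chemokine promoters hold 2 NF-kappaB matches each, which begin 89 and 70 bases before the start of Cxcl1 and 96 and 77 before that of Cxcl2. The AP-1 match of Mmp7 begins 63 bases before its start. Over the 250 bases before the start, NF-kappaB letters were found in 22.7% of 128 promoters of genes that rose at least 4-fold, in 4.65% of 43 that fell at least 4-fold and in 18.7% of all 10713 promoters of tested genes. AP-1 letters were in 10.9% of the risen, 9.3% of the fallen and 4.43% of all promoters. Letters of HNF4 (CAAAGTCCA), a factor of tubule identity, were in 0, 2.33% and 0.392%. A match is a description of letters, not of a bound site.

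The total of FPKM was shared out differently. The 12 genes that gained most FPKM held 1.09 to 1.27% of all FPKM in sham and 5.34, 2.91 and 8.13% in vehicle. Spp1, which encodes osteopontin, a secreted phosphoprotein of injured tubule and macrophages, was at 376, 361 and 374 FPKM in sham and 9676, 4559 and 13240.1 FPKM in vehicle (4.20 ± 0.57, adjusted p = 0.00529). It was the gene with the largest gain of FPKM. Apoe, a lipid carrier that macrophages make, was at 83.3, 106 and 50.7 FPKM in sham and 834, 234 and 1303 FPKM in vehicle (2.74 ± 0.59, adjusted p = 0.011). Lyz2, the lysozyme of myeloid cells, was at 17, 10.8 and 10.4 FPKM in sham and 581, 168 and 1057 FPKM in vehicle (4.83 ± 0.58, adjusted p = 0.00398). Mgp, an inhibitor of calcification, Igfbp7, an insulin-like growth factor binding protein, Cd74, the MHC class II chaperone, S100a11 and Tmem176b also rose, by 0.74 to 3.43. The other 4 of the 12 belong to the translation machinery: Rplp1, Rps15 and Rps3a1 rose by 0.54 to 1.01, and Eef1a1 was not called (0.02 ± 0.32, adjusted p = 0.43). In fits that each dropped 1 library, Igfbp7, Tmem176b, Rplp1, Rps15 and Rps3a1 missed the threshold at least once, with a highest adjusted p of 0.0602 to 0.109, without sham library 3 for Igfbp7 and without sham library 2 for Tmem176b, Rplp1, Rps15 and Rps3a1, and Spp1, Apoe, Lyz2, Mgp, Cd74 and S100a11 passed in all of these fits. The calls of Igfbp7, Tmem176b, Rps15 and Rps3a1 under median-ratio scaling were lost.

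The 12 genes that lost most FPKM held 38.1 to 39.9% of the total in sham and 23.5, 31.0 and 13.9% in vehicle. Kap, the androgen-regulated kidney protein of mouse proximal tubule, was at 40194, 36327 and 43977 FPKM in sham and 13992, 24415 and 653 FPKM in vehicle. It stood at a small part of its sham level in vehicle library 3 and near a middle value in libraries 1 and 2, and it did not pass (-3.02 ± 1.29, adjusted p = 0.115). Genes encoded by mitochondrial DNA held 25.5 to 27.7% of FPKM in sham and 18.6, 23.3 and 12.1% in vehicle. The 6 mitochondrial genes among the 12 (mt-Cytb, mt-Nd1, mt-Co1, mt-Nd2, mt-Nd4 and mt-Nd5) lay at -1.47 to -0.81. None passed, with adjusted p from 0.0903 to 0.608. After quantile normalization mt-Cytb, mt-Nd1 and mt-Co1 were positive relative to the median gene. That scaling gives genes of equal rank the same value in each library. It therefore cannot show a loss in genes that keep the top ranks. Gpx3, the plasma glutathione peroxidase made by the kidney, and Slc34a1, the main phosphate carrier, did not pass either (adjusted p from 0.0527 to 0.521). Only Cyp4b1, a cytochrome P450, and Slc27a2, a very-long-chain acyl-CoA synthetase, were called, at -2.63 ± 0.72, adjusted p = 0.034 and -1.52 ± 0.38, adjusted p = 0.0359. Scaling changed the split of calls: equal FPKM sums gave 5775 higher and 571 lower calls, against 2454 and 2359 after median-ratio scaling. Dropping 1 library at a time ended the calls of Cyp4b1 and Slc27a2 in at least 1 of 9 fits, with a highest adjusted p of 0.092 to 0.0992, without sham library 2 for Cyp4b1 and without sham library 3 for Slc27a2.

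**Figure D2:**
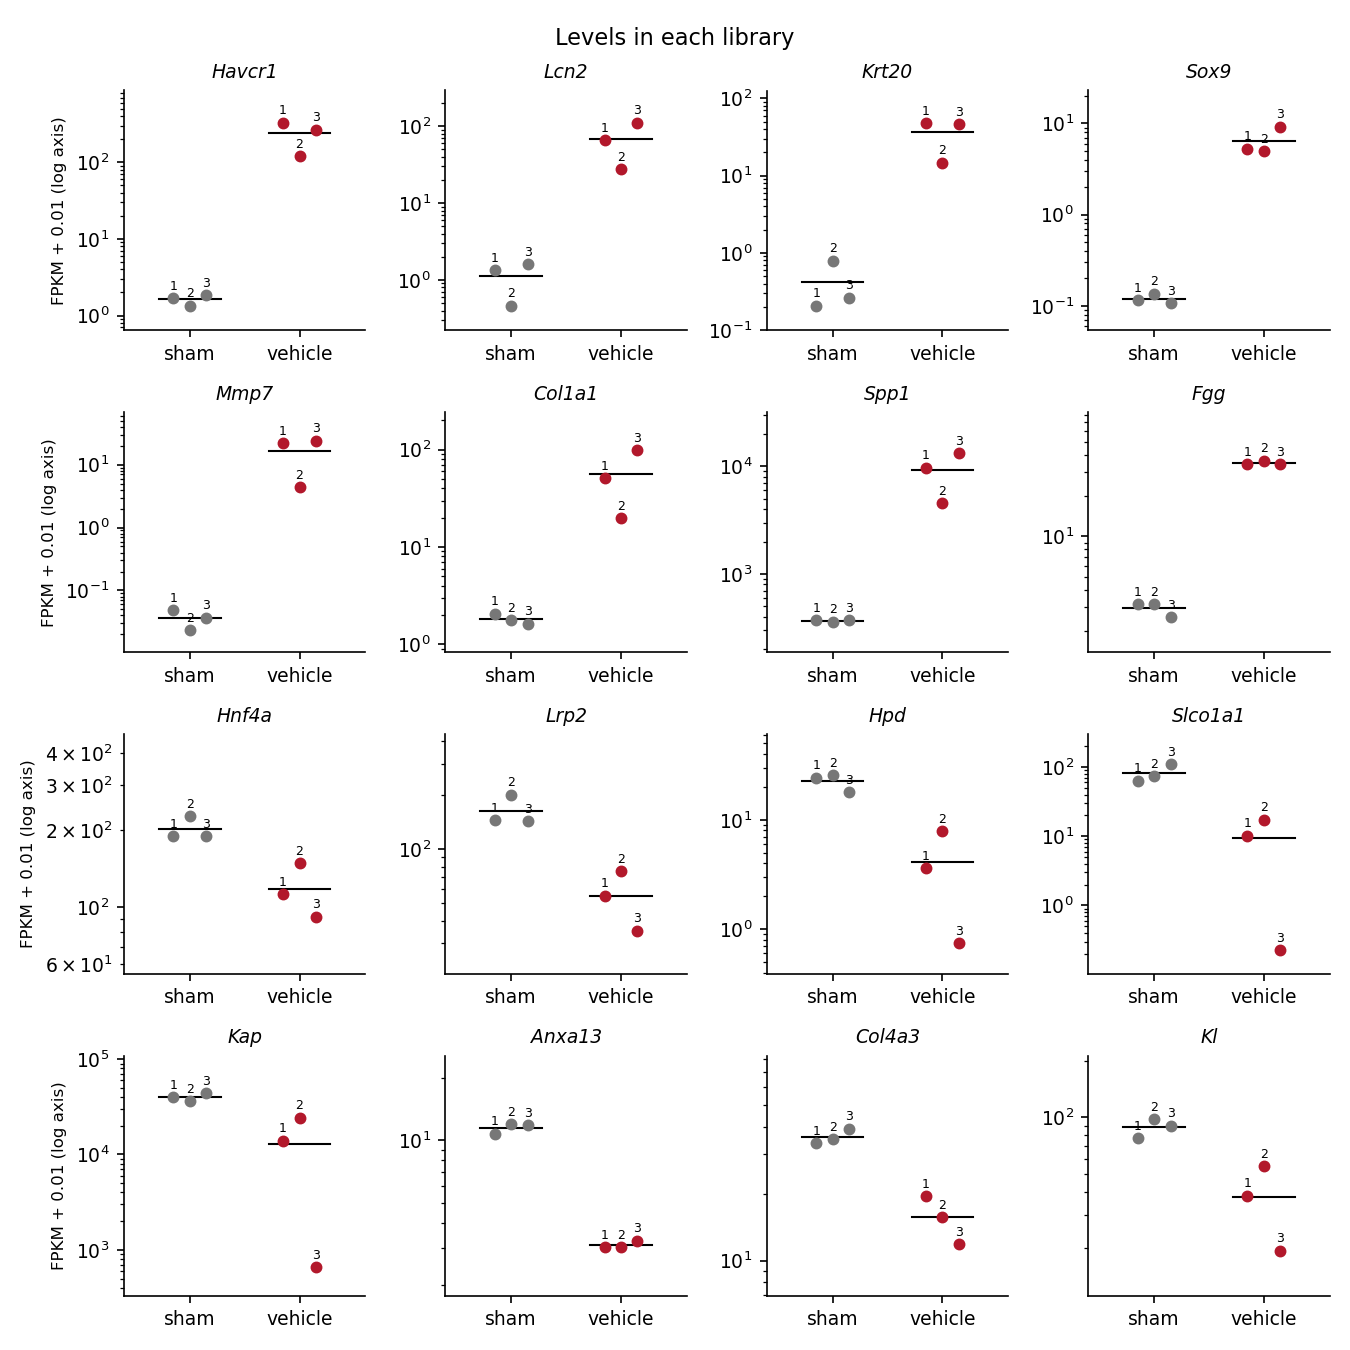
Each panel shows 1 gene in the 6 libraries, as FPKM + 0.01 on a log axis, with the library numbers and a bar at the mean of each group. Havcr1, Sox9 and Mmp7 are far above sham in every vehicle library, Fgg and Anxa13 are nearly level across the 3 vehicle libraries, and Kap and Slco1a1 are lowest in vehicle library 3.

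Genes known from less differentiated, injured tubule were higher, and which cells of the cortex made this RNA was not tested. Of simple epithelial keratins, the filaments of tubule and duct cells, 5 of 7 (median change 1.17) rose, 4 of them in all 4 scalings, and the count ran from 1 (without sham library 2) to 6 with 1 library left out. Krt20, a keratin of injured tubule, was at 0.198, 0.783 and 0.254 FPKM in sham and 48.3, 14.7 and 46.7 FPKM in vehicle (4.29 ± 0.50, adjusted p = 0.00347). Krt8 was at 61, 51.9 and 55.1 FPKM in sham and 153, 100 and 251 FPKM in vehicle (1.17 ± 0.34). Its partner Krt18 was at 13.4, 10.5 and 13.9 FPKM in sham and 77.7, 31.8 and 141 FPKM in vehicle (2.11 ± 0.51). Krt7 rose by 0.73 ± 0.21. Krt19, a duct keratin, was at 4.05, 4.14 and 2.18 FPKM in sham and 18.9, 6.23 and 64.2 FPKM in vehicle, highest in vehicle library 3, the library with the most urothelial marker RNA. Every called keratin was lowest in vehicle library 2 among the 3. Removal of 1 library ended the calls of Krt8, Krt18, Krt7 and Krt19, with a highest adjusted p of 0.053 to 0.11, without sham library 2 for Krt8, Krt18 and Krt7 and without sham library 3 for Krt19, and Krt20 passed in all of these fits. Another scaling ended the call of Krt19 under median-ratio scaling and quantile normalization.

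Of the claudins, which seal tight junctions, a list linked to injured and developing tubule was taken. In it 5 of 7 tested members rose (median change 1.79), all 5 in every scaling. The count was also 5 in each of the 9 fits with 1 library left out. Cldn10, which fell, and Cldn16, which rose, belong to the thick ascending limb list below. Cldn4 was at 8.14, 5.98 and 7.37 FPKM in sham and 67.4, 31.1 and 115 FPKM in vehicle (2.67 ± 0.42, adjusted p = 0.00687). Cldn7 was at 5.69, 4.05 and 4.88 FPKM in sham and 23.6, 16 and 35.5 FPKM in vehicle (1.79 ± 0.26, adjusted p = 0.0047). Cldn1 and Cldn3 changed by 2.03 to 2.22, while Cldn12, the most abundant of the list in sham, did not pass at -0.61 ± 0.18, adjusted p = 0.174. The 5 that rose averaged at most 7.16 FPKM in sham. The calls of Cldn4, Cldn7, Cldn1 and Cldn3 held in all 9 fits that left out 1 library.

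Annexins bind membranes in a calcium-dependent way, and 7 of 10 (median change 0.73) rose, 6 in all 4 scalings and from 2 (without sham library 2 or sham library 3) to 8 with 1 library left out. Anxa2 was at 14.4, 9.23 and 10.9 FPKM in sham and 84, 37.5 and 135 FPKM in vehicle (2.33 ± 0.47, adjusted p = 0.00932), and Anxa3, Anxa5 and Anxa6 rose by 0.93 to 2.24. Anxa13, the epithelial founder member of the family, moved the other way, at 10.8, 12 and 11.8 FPKM in sham and 3.03, 3.02 and 3.25 FPKM in vehicle (-1.91 ± 0.14, adjusted p = 0.00149). Its 3 vehicle libraries were almost level. Of S100 proteins, small calcium sensors, 7 of 10 (median change 1.14) rose, 5 in all scalings and from 1 (without sham library 2 or sham library 3) to 8 with 1 library left out. S100a6 was at 7.65, 8.82 and 7.28 FPKM in sham and 80.1, 24.5 and 173 FPKM in vehicle (2.70 ± 0.68, adjusted p = 0.0145), S100a11 changed by 1.82 ± 0.40, and S100a14 and S100a16 by 0.82 to 1.15. S100g, the vitamin D-dependent calbindin of distal tubule, was at 441, 407 and 572 FPKM in sham and 388, 659 and 141 FPKM in vehicle and did not pass (adjusted p = 0.61). Leaving out 1 library at a time raised the adjusted p of Anxa3, Anxa5, S100a6, S100a14 and S100a16 past the threshold, to a highest value of 0.0527 to 0.0576, without sham library 3 for Anxa3 and S100a6 and without sham library 2 for Anxa5, S100a14 and S100a16, and Anxa2, Anxa6, Anxa13 and S100a11 passed in all of these fits.

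Factors of the developing nephron rose in 12 of 20 tested members (median change 0.52), with 7 rises in all 4 scalings and the rises running from 4 (without sham library 2 or sham library 3) to 14 with 1 library left out. Sox9, a driver of tubule repair, was at 0.105, 0.126 and 0.0973 FPKM in sham and 5.26, 4.97 and 9.19 FPKM in vehicle (2.41 ± 0.40, adjusted p = 0.00735). Sox4, a related factor, was at 1.49, 1.32 and 1.59 FPKM in sham and 14.6, 6.71 and 18.9 FPKM in vehicle (2.15 ± 0.31, adjusted p = 0.00549). Prom1, a progenitor surface protein, and Hoxd10, a patterning factor, changed by 1.10 ± 0.28 and 0.74 ± 0.19. No removal of 1 library ended the calls of Sox9, Sox4, Prom1 and Hoxd10.

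After median-ratio scaling 3 of 22 transcription factors of the proximal tubule (median change -0.36) fell, and 4 after quantile normalization. In the deposited values only Hnf4a, which maintains the differentiated state of this segment, fell. It was at 190.1, 227 and 189 FPKM in sham and 113, 149 and 92.2 FPKM in vehicle (-1.09 ± 0.21, adjusted p = 0.023). Ppara, the fatty acid receptor, did not pass (-0.68 ± 0.25, adjusted p = 0.242). Bhlhe40, a stress-induced repressor, rose by 0.90 ± 0.18 and Nr1i2, the xenobiotic receptor PXR, by 0.63 ± 0.23. In all, 5 of the 22 rose, a smaller share than the 31.3% of all genes, and 1 in all 4 scalings. At least 1 of the 9 fits with a library left out lost Hnf4a and Nr1i2, with a highest adjusted p of 0.0695 to 0.0854, without sham library 2 for Hnf4a and without sham library 3 for Nr1i2, and Bhlhe40 passed in all of these fits. Rescaling ended the call of Nr1i2 under quantile normalization.

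The actin and tubulin cytoskeleton rose in 25 of 26 tested members (median change 1.51), 23 in all 4 scalings, from 12 (without sham library 2) to 26 with 1 library left out. Tubb2b, a tubulin of developing and repairing cells, was at 4.85, 3.46 and 4.55 FPKM in sham and 42.9, 24.6 and 62.3 FPKM in vehicle (2.68 ± 0.35, adjusted p = 0.00398). Tmsb10, an actin-binding thymosin, was at 10.9, 7.66 and 7.74 FPKM in sham and 64, 42.2 and 166 FPKM in vehicle (2.71 ± 0.45, adjusted p = 0.00753). Vim, the filament of mesenchymal and dedifferentiated cells, was at 6.72, 5.85 and 4.19 FPKM in sham and 33.7, 15.4 and 72.1 FPKM in vehicle (2.12 ± 0.48, adjusted p = 0.0112). Tubb2a and Arpc1b changed by 1.86 to 1.95, and Actg1, the most abundant of the list in sham, by 0.49 ± 0.24. Clu, the secreted chaperone clusterin, was at 63, 64.3 and 77 FPKM in sham and 289, 269 and 549 FPKM in vehicle (2.05 ± 0.27, adjusted p = 0.00398). Without 1 of the libraries Actg1 no longer passed, with a highest adjusted p of 0.102, without sham library 3, and Tubb2b, Tmsb10, Vim, Tubb2a, Arpc1b and Clu passed in all of these fits. Lost with another scaling was the call of Actg1 under median-ratio scaling.

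Integrin and laminin subunits, which attach cells to basement membrane, rose in 15 of 20 tested members (median change 0.48) but only 7 did so in all 4 scalings, and the count ran from 2 (without sham library 2 or sham library 3) to 16 with 1 library left out. Lama5, a laminin chain of tubule basement membrane, was at 14.4, 12.4 and 12.9 FPKM in sham and 32.8, 29.2 and 60.7 FPKM in vehicle (1.19 ± 0.29, adjusted p = 0.011). Itgb4 and Itga3, which bind laminins, changed by 1.12 to 1.25, and Itgb1, the shared beta chain and the most abundant member in sham, by 0.45 ± 0.25. Lama3, another laminin chain, fell, at 4.48, 5.41 and 4.57 FPKM in sham and 2.42, 3.07 and 3.67 FPKM in vehicle (-0.83 ± 0.15, adjusted p = 0.0282). The adjusted p of Itgb4, Itga3, Itgb1 and Lama3 rose past the threshold when 1 library was dropped, with a highest value of 0.0506 to 0.133, without sham library 2 for Itgb4, Itga3 and Lama3 and without vehicle library 3 for Itgb1, and Lama5 passed in all of these fits. Of these calls, scaling removed Itgb1 under median-ratio scaling and quantile normalization and Lama3 under equal FPKM sums.

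**Figure D3:**
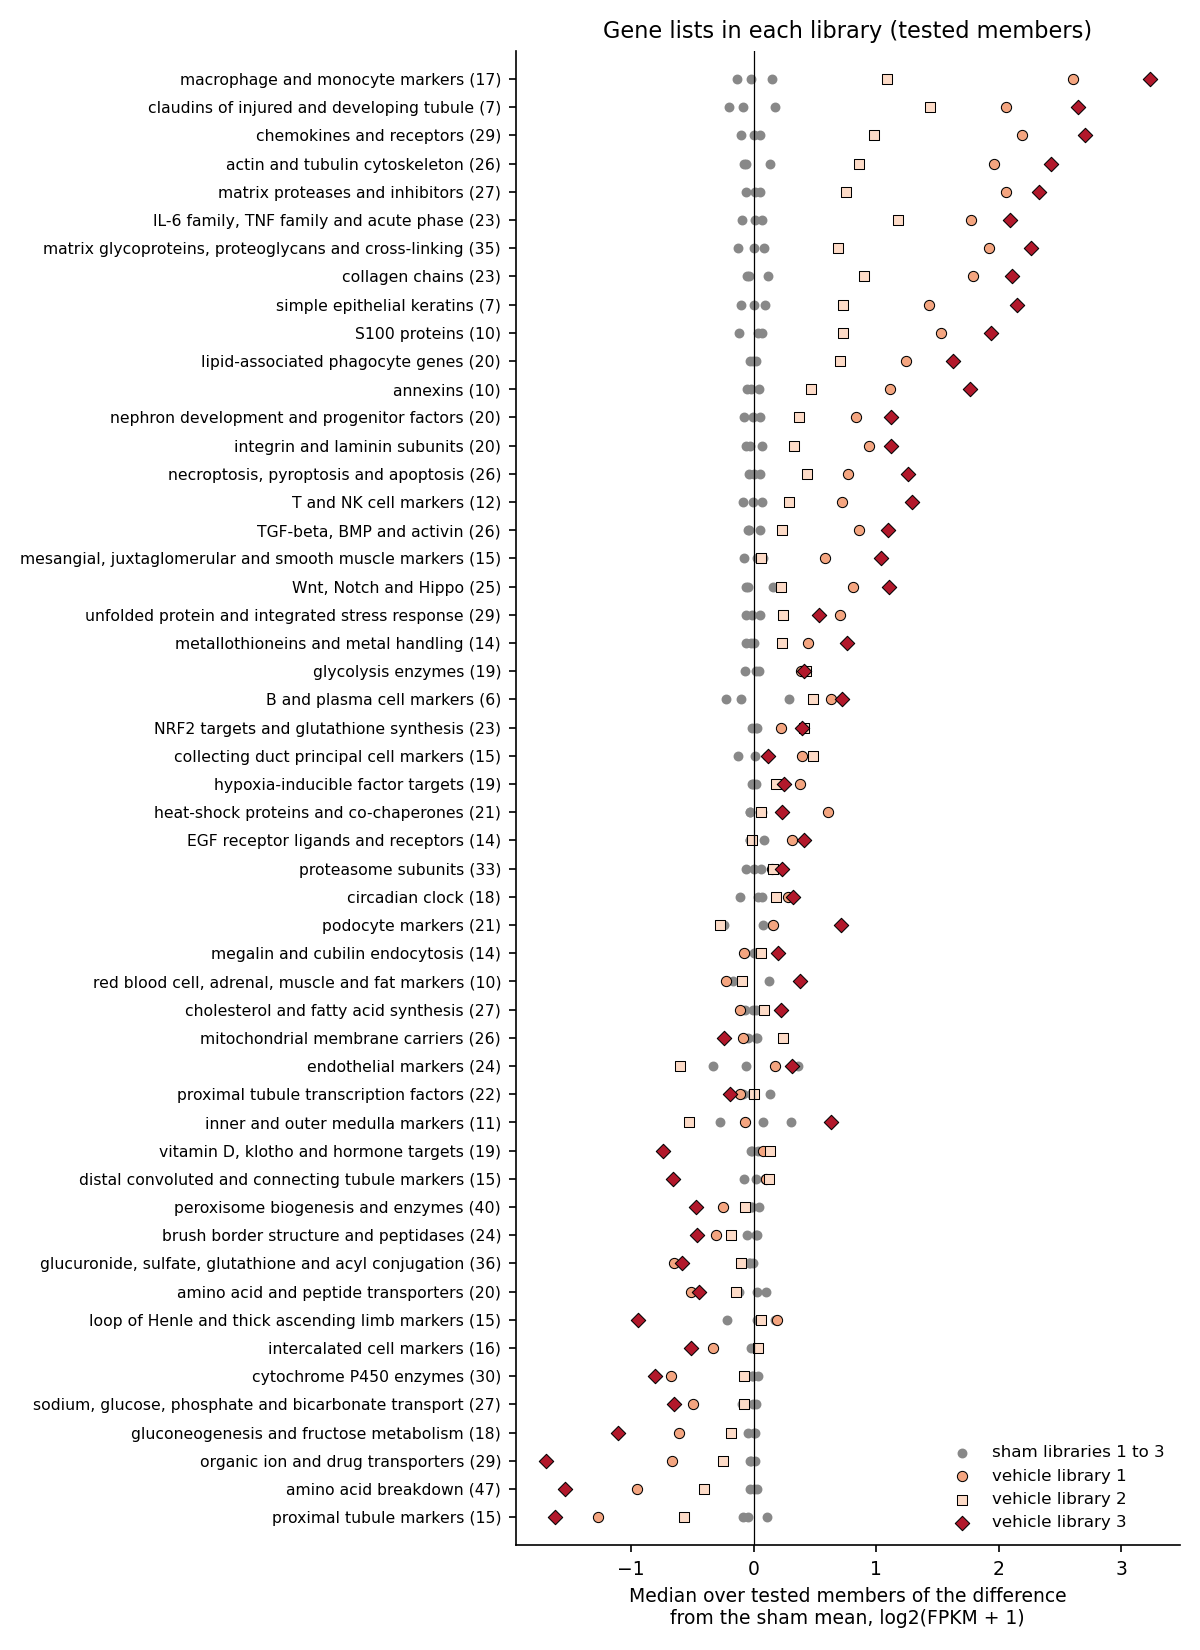
Each row is a gene list, with the number of tested members, and each symbol is 1 library. The horizontal axis is the median over members of the difference from the sham mean in log2(FPKM + 1), as fitted and not relative to the median gene. Vehicle library 2 is the nearest to sham in the raised lists from macrophage markers to annexins, and vehicle library 3 the farthest.

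Lists of genes for proximal tubule function differed in the share of members that fell. Of the 15 proximal tubule markers (median change -1.39) 9 fell and none rose, against 5.42% of all genes, 7 of them in all 4 scalings, and the count ran from 0 (without sham library 2) to 13 with 1 library left out. Lrp2, the endocytic receptor megalin, was at 145, 201 and 143 FPKM in sham and 55, 75.1 and 35.2 FPKM in vehicle (-1.89 ± 0.34, adjusted p = 0.0131). Its partner Cubn, cubilin, was at 33.5, 40.5 and 29.2 FPKM in sham and 17.3, 21.3 and 10.4 FPKM in vehicle (-1.37 ± 0.31, adjusted p = 0.0278), and Lrpap1, the chaperone of megalin, was at 148, 141 and 148 FPKM in sham and 70.2, 101 and 55.5 FPKM in vehicle (-1.28 ± 0.27, adjusted p = 0.0246). For all 3 the groups did not overlap, which was so for 56.8% of all tested genes. The rest of the endocytic list did not follow: 3 of 14 (median change -0.15) fell, and 3 others, among them the adaptors Ap1m2 (0.52 ± 0.21) and Gipc1 (0.30 ± 0.17), rose, none of these in all 4 scalings. Each count was 21.4% of the list, against 5.42% of all genes for falls and 31.3% for rises. With 1 library left out at a time, Lrp2, Cubn, Lrpap1, Ap1m2 and Gipc1 missed the threshold at least once, with a highest adjusted p of 0.0559 to 0.101, without sham library 2 for Lrp2, Cubn, Ap1m2 and Gipc1 and without vehicle library 3 for Lrpap1. Not called after rescaling were Ap1m2 and Gipc1 under median-ratio scaling and quantile normalization.

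Of genes of the brush border, the microvilli that face the filtrate, 3 of 24 (median change -0.53) fell, 12.5% against 5.42% of all genes, all in each scaling, with counts from 0 (without sham library 2 or sham library 3) to 11 with 1 library left out. Cltrn, collectrin, which brings amino acid transporters to the surface, was at 783, 795 and 794 FPKM in sham and 420.4, 525 and 287 FPKM in vehicle (-1.28 ± 0.26, adjusted p = 0.0211). Dpep1, a dipeptidase, was at 60.2, 64.6 and 51 FPKM in sham and 19, 34.9 and 19.7 FPKM in vehicle (-1.57 ± 0.30, adjusted p = 0.0156), and Pdzk1, a scaffold for transporters, changed by -1.39 ± 0.33, adjusted p = 0.0331. Ezr, the ezrin that ties microvilli to actin, rose by 0.32 ± 0.19, adjusted p = 0.0343. When single libraries were left out, Cltrn, Dpep1, Pdzk1 and Ezr missed the threshold at least once, with a highest adjusted p of 0.0613 to 0.108, without sham library 3 for Cltrn and Ezr, without sham library 2 for Dpep1 and without vehicle library 3 for Pdzk1. The call of Ezr under median-ratio scaling was lost.

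Of carriers for sodium, glucose, phosphate and bicarbonate, 8 of 27 (median change -0.84) fell, 29.6% against 5.42% of all genes. The falls were 5 in all 4 scalings and ran from 1 (without sham library 2) to 11 with 1 library left out. Slc34a3, a sodium-phosphate cotransporter, was at 22.8, 24.6 and 15.8 FPKM in sham and 2.05, 7.95 and 6.65 FPKM in vehicle (-2.17 ± 0.37, adjusted p = 0.011). Slc9a3, the sodium-proton exchanger NHE3, was at 35.7, 34.3 and 37.2 FPKM in sham and 16.9, 21.3 and 12 FPKM in vehicle (-1.38 ± 0.21, adjusted p = 0.011). Slc26a1, a sulfate exchanger, and Car4, the carbonic anhydrase of the luminal membrane, changed by -1.54 to -1.49. Slc34a1, the most abundant of the list, was at 1408, 1539.9 and 1335 FPKM in sham and 569, 1183 and 574 FPKM in vehicle and just missed the threshold (-1.26 ± 0.35, adjusted p = 0.0527). Slc5a2, the glucose carrier SGLT2, was at 139, 153 and 112 FPKM in sham and 38.9, 82.9 and 96.4 FPKM in vehicle (-1.26 ± 0.34, adjusted p = 0.0494); unlike most it was lowest in vehicle library 1. The single rise was that of the anion exchanger Slc26a6 (0.14 ± 0.14, adjusted p = 0.0363), whose change relative to the median gene turned negative with library weights. Over the 9 fits that each left out 1 library, Slc34a3, Slc26a1, Car4, Slc5a2 and Slc26a6 missed the threshold at least once, with a highest adjusted p of 0.0501 to 0.14, without sham library 2 for Slc34a3, Slc26a1, Slc5a2 and Slc26a6 and without sham library 3 for Car4, and Slc9a3 passed in all of these fits. Another scaling ended the calls of Slc5a2 under equal FPKM sums and quantile normalization and Slc26a6 under median-ratio scaling and quantile normalization.

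Amino acid and peptide transporters fell in 3 of 20 members (median change -0.58) and rose in 2, 15% and 10% against 5.42% and 31.3% of all genes. The falls were 3 in all scalings and ran from 1 (without any of 6 libraries) to 8 with 1 library left out. Slc6a19, the main neutral amino acid carrier, was at 87.8, 105 and 60.0 FPKM in sham and 13.2, 32.9 and 27 FPKM in vehicle (-2.10 ± 0.35, adjusted p = 0.0108), and Slc6a20b, an imino acid carrier, changed by -1.42 ± 0.35, adjusted p = 0.0367. Slc7a13, an aspartate and glutamate carrier of the late proximal tubule and the most abundant member in sham, was at 419, 423 and 449 FPKM in sham and 116, 154 and 2.44 FPKM in vehicle. It all but vanished from vehicle library 3 and did not pass (adjusted p = 0.066). Slc7a5, the leucine carrier of growing cells, rose by 0.89 ± 0.23, adjusted p = 0.011 and Slc7a12 by 1.80 ± 0.65, adjusted p = 0.0355. In fits that each dropped 1 library, Slc6a20b, Slc7a5 and Slc7a12 missed the threshold at least once, with a highest adjusted p of 0.0501 to 0.119, without sham library 2 for Slc6a20b and Slc7a5 and without sham library 3 for Slc7a12, and Slc6a19 passed in all of these fits. Rescaling ended the call of Slc7a12 under median-ratio scaling and quantile normalization.

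Organic ion and drug transporters fell in 11 of 29 members (median change -1.23), 37.9% against 5.42% of all genes. The falls were 7 in all 4 scalings and ran from 1 (without sham library 2 or sham library 3) to 19 with 1 library left out. Besides Slco1a1 these included Slco1a6, at 70.7, 83.4 and 89.9 FPKM in sham and 38.8, 41.3 and 19.5 FPKM in vehicle (-1.63 ± 0.31, adjusted p = 0.0161), and Slc22a4, an ergothioneine carrier, at 30.1, 27.6 and 31.3 FPKM in sham and 11.9, 15.3 and 11.5 FPKM in vehicle (-1.44 ± 0.19, adjusted p = 0.00878). Slc22a12, the urate transporter URAT1 and the most abundant in sham, was at 582, 572 and 673 FPKM in sham and 294, 686 and 158 FPKM in vehicle and its groups overlapped (adjusted p = 0.158). Slc22a6, the organic anion transporter OAT1, was at 298, 325 and 370.4 FPKM in sham and 136, 305 and 54 FPKM in vehicle and did not pass either (adjusted p = 0.0888). Abcc4, an exporter of anions and cyclic nucleotides, rose, at 5.55, 6.24 and 3.77 FPKM in sham and 15.1, 13.1 and 19.1 FPKM in vehicle (1.15 ± 0.25, adjusted p = 0.00883), and so did Abcb1b, a P-glycoprotein (0.17 ± 0.16, adjusted p = 0.0446). Dropping 1 library at a time ended the calls of Slco1a6 and Abcb1b in at least 1 of 9 fits, with a highest adjusted p of 0.0624 to 0.158, without sham library 3, and Slc22a4 and Abcc4 passed in all of these fits. Lost with another scaling was the call of Abcb1b under median-ratio scaling and quantile normalization.

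Of cytochrome P450 enzymes, 7 of 30 (median change -0.82) were lower, 23.3% against 5.42% of all genes, all in each scaling. Another 6 of 30 were higher, 20% against 31.3% of all genes, 5 of them in each scaling. The lower count ran from 2 (without sham library 2) to 15 with 1 library left out. Cyp4b1 was at 1866, 1938 and 1897 FPKM in sham and 471, 1013 and 111 FPKM in vehicle, Cyp4a32 changed by -1.80 ± 0.23, adjusted p = 0.00753, and Cyp2d12 by -3.16 ± 0.58, adjusted p = 0.0119. Cyp4a14, a fatty acid hydroxylase that the receptor PPAR-alpha induces, rose, at 3.45, 5.2 and 6.44 FPKM in sham and 161, 226 and 41.3 FPKM in vehicle (3.999 ± 0.53, adjusted p = 0.0047). It was among the few genes highest in vehicle library 2. Cyp27b1, which makes active vitamin D, was at 1.16, 1.3 and 1.92 FPKM in sham and 4.36, 6.62 and 14.4 FPKM in vehicle (1.52 ± 0.33, adjusted p = 0.00974), and Cyp2s1, Cyp4v3, Cyp2d22 and Cyp1b1 rose by 0.66 to 1.01; the groups of Cyp1b1 overlapped. Removal of 1 library ended the calls of Cyp2d12, Cyp2s1, Cyp4v3, Cyp2d22 and Cyp1b1, with a highest adjusted p of 0.0506 to 0.102, without sham library 2 for Cyp2d12, Cyp2s1 and Cyp4v3 and without sham library 3 for Cyp2d22 and Cyp1b1, and Cyp4a32, Cyp4a14 and Cyp27b1 passed in all of these fits. Of these calls, scaling removed Cyp1b1 under median-ratio scaling and quantile normalization.

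Of conjugating enzymes, 12 of 36 (median change -0.57) were lower, 33.3% against 5.42% of all genes. Only 4 of 36 were higher, 11.1% against 31.3% of all genes. The falls were 9 in all 4 scalings and ran from 1 (without sham library 2 or sham library 3) to 18 with 1 library left out. The acyl-CoA synthetase Acsm2, a proximal tubule marker, was at 818, 976 and 931 FPKM in sham and 263, 502 and 127 FPKM in vehicle (-2.11 ± 0.50, adjusted p = 0.0245), and its relative Acsm1 changed by -1.99 ± 0.29, adjusted p = 0.00878. Ephx1, the microsomal epoxide hydrolase, rose nearly evenly, at 23.6, 16.9 and 18.5 FPKM in sham and 65.4, 55.5 and 59 FPKM in vehicle (1.27 ± 0.16, adjusted p = 0.00277). Gsta2, a glutathione transferase, was at 94, 97.2 and 61.8 FPKM in sham and 246, 293 and 290.3 FPKM in vehicle (1.43 ± 0.28, adjusted p = 0.00819); its close paralog Gsta1 can share reads and rose as well (0.57 ± 0.23, adjusted p = 0.0223). Mgst1, a microsomal glutathione transferase, changed by 0.97 ± 0.17, adjusted p = 0.00622. The calls of Acsm2 and Gsta1 did not hold with every library left out in turn, and the highest adjusted p was 0.0738 to 0.0778, without sham library 2 for Acsm2 and without sham library 3 for Gsta1, and Acsm1, Ephx1, Gsta2 and Mgst1 passed in all of these fits. Not called after rescaling was Gsta1 under quantile normalization.

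Of amino acid breakdown enzymes, 25 of 47 (median change -1.30) fell, 53.2% against 5.42% of all genes. The falls were 22 in all 4 scalings and ran from 2 (without sham library 2) to 36 with 1 library left out. Hpd, of tyrosine breakdown, was at 24.2, 25.5 and 17.9 FPKM in sham and 3.59, 7.86 and 0.734 FPKM in vehicle (-2.79 ± 0.49, adjusted p = 0.0112). Aadat, of the kynurenine route, was at 183, 154 and 197 FPKM in sham and 38.7, 53.4 and 9.05 FPKM in vehicle (-2.97 ± 0.66). Kmo, of the same route, was at 36.1, 37.5 and 36.8 FPKM in sham and 11.2, 17 and 6.75 FPKM in vehicle (-1.96 ± 0.31). Hibch, of valine breakdown, changed by -1.34 ± 0.22, adjusted p = 0.0128, and Gatm, which makes the precursor of creatine, by -1.69 ± 0.34, adjusted p = 0.0181. For all of these vehicle and sham did not overlap, as for 56.8% of all tested genes. Kynu, kynureninase, rose by 0.41 ± 0.19. Leaving out 1 library at a time raised the adjusted p of Hpd, Aadat, Hibch, Gatm and Kynu past the threshold, to a highest value of 0.0501 to 0.0819, without sham library 2 for Hpd and Gatm and without sham library 3 for Aadat, Hibch and Kynu, and Kmo passed in all of these fits. The call of Kynu under median-ratio scaling and quantile normalization was lost.

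Gluconeogenesis and fructose genes fell in 4 of 18 members (median change -0.90) and rose in 1, 22.2% and 5.56% against 5.42% and 31.3% of all genes. The falls were 3 in all scalings and ran from 0 (without any of 4 libraries) to 10 with 1 library left out. G6pc, glucose 6-phosphatase, was at 127, 130.1 and 145 FPKM in sham and 56.9, 82.8 and 29.9 FPKM in vehicle (-1.64 ± 0.36, adjusted p = 0.0233). Pcx, pyruvate carboxylase, changed by -1.70 ± 0.43, adjusted p = 0.0336 and Gk, glycerol kinase, by -1.29 ± 0.31, adjusted p = 0.0336. Pck2, the mitochondrial form of the enzyme that starts the pathway, rose by 0.50 ± 0.21, adjusted p = 0.0211. Leaving out single libraries ended the calls of G6pc, Pcx, Gk and Pck2, with a highest adjusted p of 0.0738 to 0.112, without sham library 3 for G6pc, Gk and Pck2 and without vehicle library 3 for Pcx. Another scaling ended the call of Pck2 under quantile normalization.

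Peroxisome genes fell in 7 of 40 members (median change -0.53), 17.5% against 5.42% of all genes, and 3 of these falls held in all 4 scalings. With equal FPKM sums 4 members fell, after median-ratio scaling 15 and after quantile normalization 11. The count ran from 0 (without sham library 2 or sham library 3) to 17 with 1 library left out. Agps, which makes ether lipids, was at 41.4, 44.5 and 54.3 FPKM in sham and 18.8, 18.5 and 8.34 FPKM in vehicle (-1.92 ± 0.35, adjusted p = 0.0133), Acox3, an acyl-CoA oxidase, changed by -1.13 ± 0.21, adjusted p = 0.0197, and Slc27a2 was at 1428, 1478 and 1474 FPKM in sham and 701, 987 and 354 FPKM in vehicle. Mitochondrial carriers rose in 4 of 26 members (median change -0.32) and fell in 1, 15.4% and 3.85% against 31.3% and 5.42% of all genes. Slc25a24, a calcium-regulated carrier of ATP and phosphate, was at 1.09, 0.981 and 1.12 FPKM in sham and 16.4, 5.24 and 18.3 FPKM in vehicle (2.34 ± 0.41, adjusted p = 0.00789). Ucp2, an uncoupling protein also found in macrophages, was at 8.93, 6.88 and 10.1 FPKM in sham and 36.1, 39.9 and 51.9 FPKM in vehicle (1.88 ± 0.18, adjusted p = 0.00149). Slc25a15, the ornithine carrier, fell (-1.04 ± 0.19, adjusted p = 0.0187), and Slc25a5, the most abundant carrier in sham, did not pass (-1.15 ± 0.33, adjusted p = 0.0646). At least 1 of the 9 fits with a library left out lost Agps, Acox3 and Slc25a15, with a highest adjusted p of 0.0546 to 0.0705, without sham library 3, and Slc25a24 and Ucp2 passed in all of these fits.

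**Figure D4:**
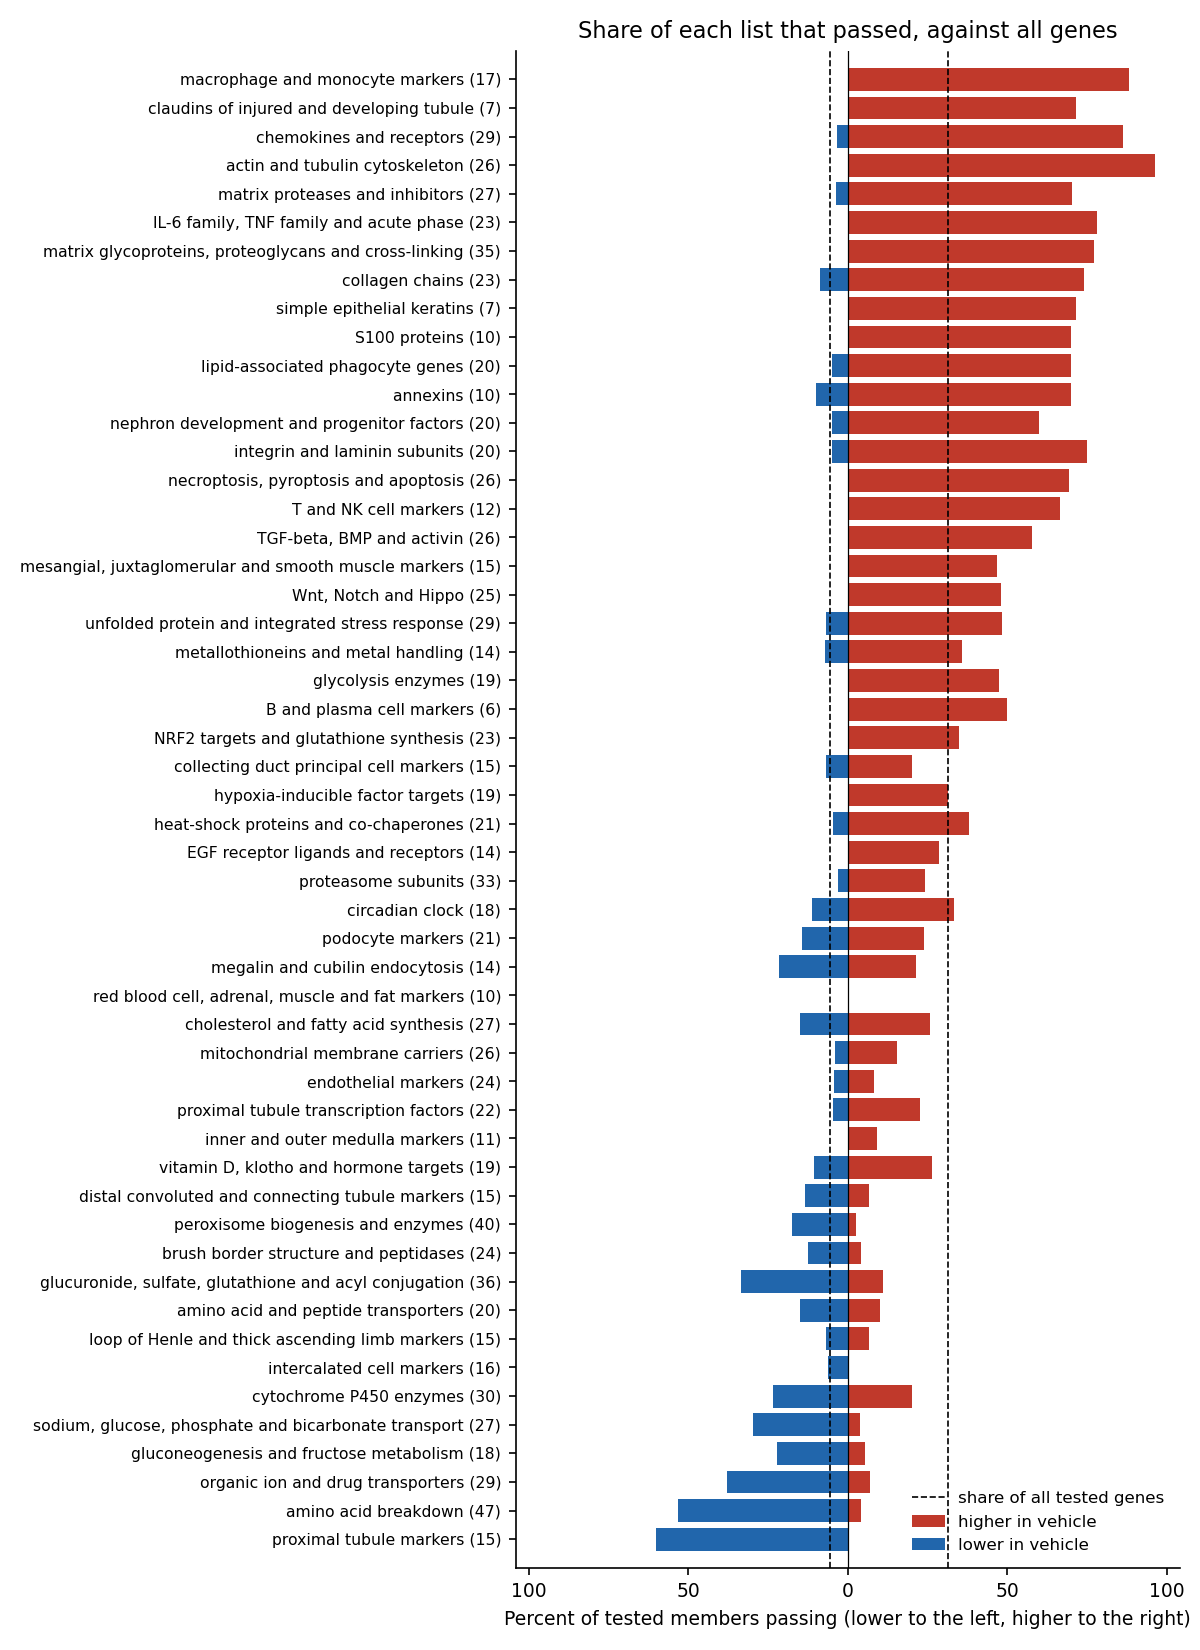
Bars give the percent of the tested members of each list that passed as higher (red, to the right) or lower (blue, to the left) in vehicle, and the dashed lines mark the same shares over all 15453 genes, 31.3% and 5.42%. Cytoskeleton, macrophage and chemokine lists reach furthest right, and proximal tubule markers and amino acid breakdown furthest left.

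Few markers of other nephron segments passed. Of the thick ascending limb markers (median change -0.60) 1 of 15 rose and 1 of 15 fell, each 6.67%, against 31.3% and 5.42% of all genes. Cldn16, a magnesium and calcium channel-forming claudin, was at 6.14, 5.21 and 6.67 FPKM in sham and 17.5, 12.1 and 10.7 FPKM in vehicle (0.72 ± 0.22, adjusted p = 0.0132), and Cldn10, a sodium-channel claudin also made by proximal tubule, was at 81.6, 74 and 88.4 FPKM in sham and 46, 45.5 and 31.3 FPKM in vehicle (-1.29 ± 0.21, adjusted p = 0.0132). Umod, uromodulin, was at 682, 489 and 594 FPKM in sham and 833, 788 and 309 FPKM in vehicle, with vehicle libraries 1 and 2 above sham and library 3 below (adjusted p = 0.986). Egf, epidermal growth factor of this segment, was at 119, 109 and 95.1 FPKM in sham and 32.5, 57.3 and 2.71 FPKM in vehicle and did not pass (-2.78 ± 1.16, adjusted p = 0.112). In vehicle library 3 it was nearly gone, while in library 2 more was left. Without 1 of the libraries Cldn16 and Cldn10 no longer passed, with a highest adjusted p of 0.0553 to 0.0568, without sham library 2 for Cldn16 and without sham library 3 for Cldn10. Rescaling ended the call of Cldn16 under median-ratio scaling and quantile normalization.

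Of distal convoluted and connecting tubule markers 2 of 15 (median change -0.52) fell and 1 rose. Pvalb, a calcium buffer of the early distal convoluted tubule, was at 8.63, 9.45 and 11 FPKM in sham and 0.453, 1.98 and 0.306 FPKM in vehicle (-2.88 ± 0.83, adjusted p = 0.0389). Kl, klotho, the co-receptor for the phosphate hormone FGF23, was at 77.3, 98 and 90.2 FPKM in sham and 38.1, 54.6 and 19.4 FPKM in vehicle (-1.63 ± 0.43, adjusted p = 0.0395). Trpv5, the calcium entry channel, was at 4.89, 5.69 and 5.91 FPKM in sham and 10.8, 10.8 and 9.74 FPKM in vehicle (0.52 ± 0.19, adjusted p = 0.0147), and Klk1, kallikrein and the most abundant marker of the list, at 1574, 1586 and 1815 FPKM in sham and 925, 1599 and 508 FPKM in vehicle (adjusted p = 0.245). The falls were 13.3% of this list against 5.42% of all genes, and the rise was 6.67% against 31.3%. Among vitamin D and hormone genes the intestinal-type calcium channel Trpv6 rose too, at 0.388, 0.398 and 0.449 FPKM in sham and 2.55, 1.39 and 2.96 FPKM in vehicle (0.90 ± 0.21, adjusted p = 0.00916), and Fgfr1, a receptor that pairs with klotho, by 0.45 ± 0.14, adjusted p = 0.0103. Hsd11b1, which regenerates active glucocorticoid, fell, at 50.1, 39.8 and 56.2 FPKM in sham and 12, 7.41 and 9.07 FPKM in vehicle (-2.55 ± 0.28, adjusted p = 0.00504). The adjusted p of Pvalb, Kl and Trpv5 rose past the threshold when 1 library was dropped, with a highest value of 0.0555 to 0.128, without vehicle library 3 for Pvalb and Kl and without sham library 2 for Trpv5, and Trpv6, Fgfr1 and Hsd11b1 passed in all of these fits. Lost with another scaling was the call of Trpv5 under median-ratio scaling and quantile normalization.

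Collecting duct principal cell markers rose in 3 of 15 members (median change 0.00) and fell in 1, 20% and 6.67% against 31.3% and 5.42% of all genes. Aqp4, the basolateral water channel, was at 9.68, 4.11 and 7.2 FPKM in sham and 2.28, 1.29 and 3.32 FPKM in vehicle (-1.56 ± 0.34, adjusted p = 0.0239), whereas Aqp2, the luminal one, was at 98.4, 50.6 and 70.3 FPKM in sham and 123, 146 and 76.7 FPKM in vehicle and did not pass (adjusted p = 0.433). Gata3, a duct factor, and Hsd11b2, which inactivates glucocorticoid, changed by 0.41 ± 0.20 and 0.40 ± 0.24. Of 16 intercalated cell markers (median change -0.61) only Car12, a carbonic anhydrase, fell (-0.996 ± 0.20, adjusted p = 0.0268), 6.25% against 5.42% of all genes. After median-ratio scaling 3 fell. None of the 16 rose, against 31.3% of all genes. Foxi1, their master factor, did not pass (0.30 ± 0.22, adjusted p = 0.0557). Of 11 medullary markers (median change -0.43) only Tspan8 was called (0.93 ± 0.29, adjusted p = 0.0158). The share that rose was thus 9.09%, against 31.3% of all genes. Psca, which is also a urothelial gene, was at 18.9, 5.72 and 16.9 FPKM in sham and 2.08, 0.712 and 19.8 FPKM in vehicle (adjusted p = 0.168). Like the summed urothelial markers it was highest in vehicle library 3 and lowest in vehicle library 2, but the order of the sham libraries was not the same. With 1 library left out at a time, Aqp4, Gata3, Hsd11b2, Car12 and Tspan8 missed the threshold at least once, with a highest adjusted p of 0.0646 to 0.142, without sham library 3 for Aqp4 and without sham library 2 for Gata3, Hsd11b2, Car12 and Tspan8. Of these calls, scaling removed Gata3 and Hsd11b2 under median-ratio scaling and quantile normalization.

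In the glomerulus, podocyte markers fell in 3 of 21 members (median change -0.13), 14.3% against 5.42% of all genes. Another 5 rose, 23.8% against 31.3% of all genes. The falls all held in each scaling, and none of the rises held in all of them. Nphs1, nephrin of the slit diaphragm, was at 2.29, 2.61 and 1.41 FPKM in sham and 1.47, 0.884 and 4.13 FPKM in vehicle with overlapping groups (adjusted p = 0.841). Col4a3, a collagen chain of the mature glomerular basement membrane, was at 33.7, 35.1 and 39.1 FPKM in sham and 19.4, 15.6 and 11.8 FPKM in vehicle (-1.47 ± 0.19, adjusted p = 0.00826). Its partner Col4a4 was at 26.9, 28.8 and 32.3 FPKM in sham and 21.4, 17 and 13.7 FPKM in vehicle (-1.04 ± 0.17, adjusted p = 0.0147). Kirrel, a nephrin relative, rose by 1.03 ± 0.39, adjusted p = 0.03, and Vegfa, made by podocytes and tubules, was not called (-0.70 ± 0.17, adjusted p = 0.0885). The falls were thus not shared by the list. When single libraries were left out, Col4a4 and Kirrel missed the threshold at least once, with a highest adjusted p of 0.063 to 0.0968, without sham library 3, and Col4a3 passed in all of these fits. Not called after rescaling was Kirrel under quantile normalization.

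Few endothelial markers passed, with 2 of 24 (median change -0.35) higher and 1 lower. These are 8.33% and 4.17%, against 31.3% and 5.42% of all genes. Pecam1, the pan-endothelial adhesion molecule, was at 7.59, 4.71 and 3.88 FPKM in sham and 6, 2.11 and 7.04 FPKM in vehicle (adjusted p = 0.751). Vehicle library 2 held the least of it. Plat, tissue plasminogen activator, rose, at 6.95, 5.66 and 4.48 FPKM in sham and 26.7, 12.3 and 31.1 FPKM in vehicle (1.49 ± 0.35, adjusted p = 0.0111), as did Nos3, the endothelial nitric oxide synthase (0.23 ± 0.18, adjusted p = 0.0496). Igfbp5, a growth factor binding protein of capillaries and other cells, fell, at 72.3, 55.3 and 52.4 FPKM in sham and 22.2, 23 and 18.9 FPKM in vehicle (-1.73 ± 0.34, adjusted p = 0.0161), and Igfbp3 did not pass (-1.24 ± 0.39, adjusted p = 0.0804). Of mesangial, juxtaglomerular and smooth muscle markers 7 of 15 (median change 0.41) rose, 46.7% against 31.3% of all genes. The rises were 3 in all 4 scalings and ran from 1 (without sham library 2 or sham library 3) to 9 with 1 library left out. Acta2, the smooth muscle actin of myofibroblasts, was at 10.4, 10.1 and 9.31 FPKM in sham and 47.9, 16.3 and 69.3 FPKM in vehicle (1.54 ± 0.44, adjusted p = 0.0165). Rgs4, Ptn and Cspg4, a pericyte proteoglycan, changed by 0.60 to 1.13, and Ren1, renin, was at 15.6, 27.6 and 33.1 FPKM in sham and 12.6, 20.6 and 18.1 FPKM in vehicle (adjusted p = 0.59). Over the 9 fits that each left out 1 library, Nos3, Igfbp5, Acta2, Ptn and Cspg4 missed the threshold at least once, with a highest adjusted p of 0.0559 to 0.15, without sham library 3 for Nos3, Acta2, Ptn and Cspg4 and without sham library 2 for Igfbp5, and Plat and Rgs4 passed in all of these fits. The calls of Nos3 under median-ratio scaling and quantile normalization and Cspg4 under quantile normalization were lost.

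Collagen chains, the fibres of scar, rose in 17 of 23 tested members (median change 1.30), 15 in all 4 scalings and from 11 (without sham library 2) to 19 with 1 library left out. Col1a1, a chain of fibrillar collagen I, was at 2.05, 1.77 and 1.62 FPKM in sham and 51, 19.9 and 98.5 FPKM in vehicle (3.79 ± 0.48, adjusted p = 0.00398). Col3a1, of collagen III, was at 2.61, 2.37 and 1.98 FPKM in sham and 76.6, 20.8 and 89.4 FPKM in vehicle (3.72 ± 0.48, adjusted p = 0.00436). Even the lowest vehicle library of both lay far above sham. Col15a1 and Col18a1, basement membrane collagens, changed by 2.67 ± 0.40 and 1.62 ± 0.27. Col4a1, a basement membrane chain of most vessels and tubules, was at 24.6, 20.3 and 21.8 FPKM in sham and 79.2, 48.4 and 114 FPKM in vehicle (1.43 ± 0.26, adjusted p = 0.00753). Its partner Col4a2 changed by 1.30 ± 0.27, adjusted p = 0.00878, against the falls of Col4a3 and Col4a4 given above. The calls of Col1a1, Col3a1, Col15a1, Col18a1, Col4a1 and Col4a2 held in all 9 fits that left out 1 library.

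Matrix proteases and their inhibitors rose in 19 of 27 members (median change 1.49), 18 in all 4 scalings, from 12 (without sham library 2 or sham library 3) to 24 with 1 library left out. Timp1, an inhibitor of metalloproteases, was at 0.338, 0.294 and 0.291 FPKM in sham and 24.1, 10.1 and 40.5 FPKM in vehicle (3.81 ± 0.54, adjusted p = 0.00599). Adamts1, a protease of proteoglycans, was at 5.97, 8.34 and 7.71 FPKM in sham and 76.4, 43.7 and 123 FPKM in vehicle (2.89 ± 0.39, adjusted p = 0.0047). Mmp14, the membrane-bound protease, and Mmp3, stromelysin, changed by 2.67 ± 0.44 and 2.14 ± 0.32. Timp3, the matrix-bound inhibitor and far the most abundant of the family in sham, fell, at 120.4, 136 and 127 FPKM in sham and 37.7, 48.2 and 36.3 FPKM in vehicle (-1.93 ± 0.29, adjusted p = 0.00916). Timp2 was at 9.69, 7.96 and 5.68 FPKM in sham and 41.3, 12.8 and 72.6 FPKM in vehicle and rose (1.73 ± 0.49, adjusted p = 0.0175), so that the 3 inhibitors did not move together. Plau, urokinase, the most abundant member in sham, did not pass (0.15 ± 0.30, adjusted p = 0.244). Dropping 1 library at a time ended the call of Timp2 in at least 1 of 9 fits, with a highest adjusted p of 0.067, without sham library 3, and Timp1, Adamts1, Mmp14, Mmp3 and Timp3 passed in all of these fits.

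Matrix glycoproteins, proteoglycans and cross-linking enzymes rose in 27 of 35 (median change 1.39), 23 in all 4 scalings and from 14 (without sham library 2 or sham library 3) to 30 with 1 library left out. Fn1, fibronectin, was at 1.61, 1.69 and 1.17 FPKM in sham and 23.3, 8.42 and 39.8 FPKM in vehicle (2.79 ± 0.43, adjusted p = 0.00687). Mfap4, an elastic fibre protein, was at 0.525, 0.377 and 0.254 FPKM in sham and 6.8, 3.95 and 13.5 FPKM in vehicle (2.28 ± 0.39, adjusted p = 0.00753), and Serpinh1, the collagen chaperone HSP47, at 39, 32.1 and 33.2 FPKM in sham and 134, 77.2 and 168 FPKM in vehicle (1.47 ± 0.27, adjusted p = 0.00753). In each of these, vehicle library 2 was the lowest and still above sham. No removal of 1 library ended the calls of Fn1, Mfap4 and Serpinh1.

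**Figure D5:**
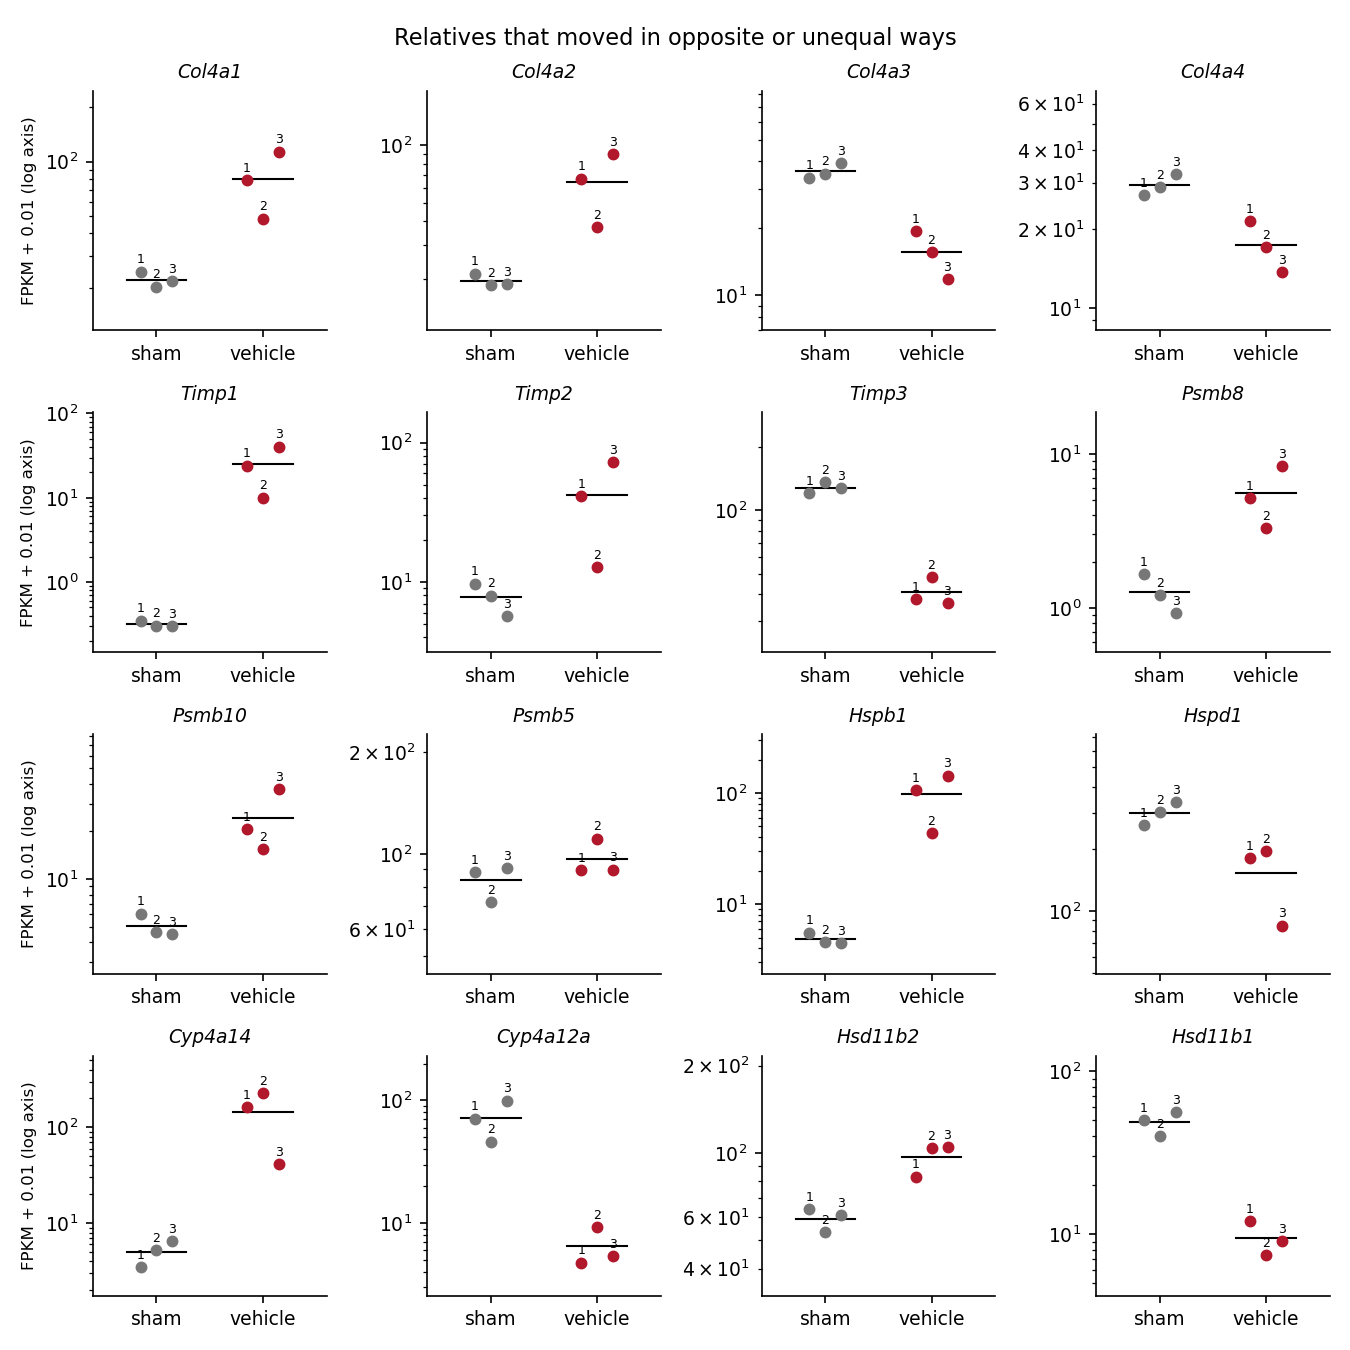
Each panel shows 1 gene in the 6 libraries, as FPKM + 0.01 on a log axis, with library numbers and a bar at the mean of each group. Relatives are set side by side, except for Hspb1 and Hspd1, which share only the list of heat-shock proteins. Col4a1 and Col4a2 rose while Col4a3 and Col4a4 fell, and Timp1 and Timp2 rose while Timp3 fell. Cyp4a14 rose while Cyp4a12a fell, and Hspb1 rose while Hspd1 fell. Psmb8 and Psmb10 rose and Psmb5 was not called; the rise of Hsd11b2, unlike the fall of Hsd11b1, was not called under median-ratio scaling or quantile normalization.

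Signals of the TGF-beta family, the main drivers of scarring, rose in 15 of 26 members (median change 0.43), 9 in all 4 scalings and from 5 (without sham library 2 or sham library 3) to 24 with 1 library left out. Gdf15, a stress hormone, was at 4.02, 3.27 and 2.11 FPKM in sham and 31.8, 34 and 83.9 FPKM in vehicle (3.21 ± 0.49, adjusted p = 0.00687). Tgfb1 was at 1.67, 1.1 and 1 FPKM in sham and 7.33, 3.93 and 13.9 FPKM in vehicle (1.63 ± 0.35, adjusted p = 0.00974), and Ltbp2 and Ltbp3, of the latent TGF-beta binding protein family, changed by 1.26 to 2.25. Bmp6, an iron-regulating family member, did not pass (0.44 ± 0.28, adjusted p = 0.0605). Among ligands of the EGF receptor Hbegf was at 4.12, 3.37 and 4.36 FPKM in sham and 14.2, 9.33 and 18.8 FPKM in vehicle (1.27 ± 0.25, adjusted p = 0.0082) and Areg, amphiregulin, at 0.0112, 0 and 0.0473 FPKM in sham and 2.98, 2.21 and 1.3 FPKM in vehicle (1.30 ± 0.31, adjusted p = 0.0106). Nrg1, neuregulin, and the receptor Erbb2 changed by 0.42 to 0.61, while Errfi1, the feedback inhibitor, did not pass (-0.48 ± 0.24, adjusted p = 0.557). In that list 4 of 14 (median change -0.08) rose, near the share of all genes, from 2 (without sham library 2 or sham library 3) to 6 with 1 library left out. The calls of Nrg1 and Erbb2 did not hold with every library left out in turn, and the highest adjusted p was 0.0794 to 0.102, without vehicle library 1 for Nrg1 and without sham library 3 for Erbb2, and Gdf15, Tgfb1, Ltbp2, Ltbp3, Hbegf and Areg passed in all of these fits. Another scaling ended the calls of Nrg1 and Erbb2 under median-ratio scaling and quantile normalization.

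Wnt, Notch and Hippo genes rose in 12 of 25 (median change 0.38), 48% against 31.3% of all genes. The rises were 7 in all 4 scalings and ran from 1 (without sham library 2 or sham library 3) to 21 with 1 library left out. Ankrd1, a target of the Hippo factor YAP, was at 1.11, 0.322 and 0.921 FPKM in sham and 22.4, 3.81 and 52.1 FPKM in vehicle (3.08 ± 0.80, adjusted p = 0.0161). Hes1, a Notch target, was at 8.19, 6.25 and 6.03 FPKM in sham and 13.1, 15.4 and 23.2 FPKM in vehicle (0.90 ± 0.21, adjusted p = 0.00913), and Dkk3, a Wnt modulator, changed by 1.63 ± 0.43, adjusted p = 0.014. Yap1 itself and Sfrp1, a Wnt antagonist, changed by 0.29 ± 0.15 and 0.61 ± 0.29. Leaving out 1 library at a time raised the adjusted p of Ankrd1, Dkk3, Yap1 and Sfrp1 past the threshold, to a highest value of 0.0549 to 0.113, without sham library 2 for Ankrd1, without sham library 3 for Dkk3 and Yap1 and without vehicle library 1 for Sfrp1, and Hes1 passed in all of these fits. Rescaling ended the calls of Yap1 and Sfrp1 under median-ratio scaling and quantile normalization.

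Interleukin-6 family, TNF family and acute phase genes rose in 18 of 23 (median change 1.41), 17 in all 4 scalings and from 12 (without sham library 2) to 20 with 1 library left out. Socs3, the feedback inhibitor of this pathway, was at 0.914, 0.778 and 0.552 FPKM in sham and 25.9, 13.5 and 33.4 FPKM in vehicle (3.48 ± 0.41, adjusted p = 0.00324). Stat3, its transcription factor, was at 6.55, 6.1 and 5.85 FPKM in sham and 24.9, 15.8 and 28.1 FPKM in vehicle (1.41 ± 0.22, adjusted p = 0.00599). Lrg1, an acute phase glycoprotein, was nearly level over the vehicle libraries, at 2.25, 2.17 and 2.48 FPKM in sham and 9.8, 9.89 and 8.16 FPKM in vehicle (1.34 ± 0.17, adjusted p = 0.00277). Fgg, the fibrinogen gamma chain, shared that pattern at 3.14, 3.14 and 2.52 FPKM in sham and 34.4, 36.4 and 34.5 FPKM in vehicle (2.90 ± 0.51, adjusted p = 0.00798). Cp, the copper oxidase ceruloplasmin, was at 4.08, 3.56 and 3.12 FPKM in sham and 50.8, 20.3 and 58.5 FPKM in vehicle (2.85 ± 0.44, adjusted p = 0.00687), and the shared receptor chain Il6st did not pass (adjusted p = 0.288). No removal of 1 library ended the calls of Socs3, Stat3, Lrg1, Fgg and Cp.

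Chemokines and their receptors rose in 25 of 29 (median change 1.603), 24 in all 4 scalings and from 16 (without sham library 3) to 26 with 1 library left out. Cxcl1, whose promoter is printed above, was at 1.39, 1.15 and 1.77 FPKM in sham and 83.1, 40.2 and 115 FPKM in vehicle (4.63 ± 0.75, adjusted p = 0.00753). Ccl2, which recruits monocytes, was at 0.551, 0.229 and 0.202 FPKM in sham and 26.3, 15.2 and 61.3 FPKM in vehicle (4.22 ± 0.47, adjusted p = 0.00277). Cxcl10 and Ccl5, which recruit T cells, changed by 2.24 ± 0.37 and 2.05 ± 0.27, and Ccl17, of dendritic cells, changed by 2.03 ± 0.23, adjusted p = 0.00248. Ccl28, a chemokine of mucosal epithelia, was the 1 member that fell, at 6.19, 5.73 and 15.5 FPKM in sham and 2.17, 3.42 and 0.917 FPKM in vehicle (-1.93 ± 0.37, adjusted p = 0.0149). Cxcl12, the most abundant in sham, had overlapping groups (adjusted p = 0.907). At least 1 of the 9 fits with a library left out lost Ccl28, with a highest adjusted p of 0.0507, without sham library 3, and Cxcl1, Ccl2, Cxcl10, Ccl5 and Ccl17 passed in all of these fits.

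Macrophage and monocyte markers rose in 15 of 17 (median change 2.12), all in each scaling and from 10 (without sham library 2) to 16 with 1 library left out. C1qa, a complement component made by resident macrophages, was at 7.89, 6.43 and 5.78 FPKM in sham and 109, 37.5 and 226 FPKM in vehicle (3.39 ± 0.55, adjusted p = 0.00753), and C1qb and C1qc changed by 3.04 to 3.11. Mertk, an engulfment receptor and the most abundant member in sham, was at 16.5, 17 and 14.2 FPKM in sham and 18, 13 and 17.7 FPKM in vehicle and did not pass (adjusted p = 0.925). Genes of lipid-laden phagocytes rose in 14 of 20 (median change 0.94), 11 in all 4 scalings and from 7 (without sham library 2) to 15 with 1 library left out. Lgals3, galectin-3, was at 13.3, 9.2 and 15.4 FPKM in sham and 66.7, 51.1 and 129 FPKM in vehicle (2.23 ± 0.37, adjusted p = 0.00705), and Ctss, cathepsin S, at 8.58, 6.62 and 4.88 FPKM in sham and 128, 33.3 and 241 FPKM in vehicle (3.47 ± 0.59, adjusted p = 0.00798). Plin2, which coats lipid droplets in many cell types, changed by 0.82 ± 0.17, adjusted p = 0.0077. Lpl, lipoprotein lipase, fell, at 82.8, 94.7 and 156 FPKM in sham and 14.9, 36.4 and 9.5 FPKM in vehicle (-2.85 ± 0.57, adjusted p = 0.0142). Fat tissue also makes Lpl, and the part of fat in its values was not tested. Without 1 of the libraries Lpl no longer passed, with a highest adjusted p of 0.058, without sham library 3, and C1qa, C1qb, C1qc, Lgals3, Ctss and Plin2 passed in all of these fits.

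Genes of lymphocytes were low in sham. Of T and NK cell markers 8 of 12 (median change 0.45) rose, 4 in all 4 scalings and from 1 (without sham library 2 or sham library 3) to 12 with 1 library left out. Cd4 was at 0.247, 0.0792 and 0.0855 FPKM in sham and 1.05, 0.604 and 1.88 FPKM in vehicle (0.60 ± 0.20, adjusted p = 0.0145), and Lck, a T cell kinase, and Trbc2, a T cell receptor segment, changed by 0.75 to 1.09. Thy1, which fibroblasts also carry, was at 1.03, 1.28 and 0.777 FPKM in sham and 11.5, 5.57 and 16.7 FPKM in vehicle (2.19 ± 0.35, adjusted p = 0.00687). B and plasma cell markers rose in 3 of 6 (median change 0.10), none in all 4 scalings; Ighm had overlapping groups (0.93 ± 0.36, adjusted p = 0.0288) and Jchain did not pass (-0.48 ± 0.15, adjusted p = 0.344). Xbp1, which many secretory cells use, and Cd79b changed by 0.35 to 0.52. Of the neutrophil genes Csf3r was at 0.257, 0.145 and 0.159 FPKM in sham and 3.17, 1.33 and 7.64 FPKM in vehicle (1.59 ± 0.50, adjusted p = 0.0216), S100a9 rose (1.90 ± 0.75, adjusted p = 0.0463) and its partner S100a8 did not pass (1.36 ± 0.62, adjusted p = 0.0625). The adjusted p of Cd4, Lck, Trbc2, Ighm, Xbp1, Cd79b, Csf3r and S100a9 rose past the threshold when 1 library was dropped, with a highest value of 0.0528 to 0.155, without sham library 2 for Cd4, Ighm, Xbp1, Cd79b and Csf3r, without sham library 3 for Lck and Trbc2 and without vehicle library 3 for S100a9, and Thy1 passed in all of these fits. Lost with another scaling were the calls of Ighm, Xbp1, Cd79b and S100a9 under median-ratio scaling and quantile normalization.

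Cell stress genes did not move as 1 programme. Heat-shock proteins rose in 8 of 21 (median change -0.06), 38.1% against 31.3% of all genes, 6 in all 4 scalings and from 7 (without any of 5 libraries) to 10 with 1 library left out. Hspb1, the small heat-shock protein HSP27, was at 5.51, 4.5 and 4.46 FPKM in sham and 106, 43.7 and 143 FPKM in vehicle (3.63 ± 0.46, adjusted p = 0.00398). Hspa1b was at 8.18, 5.31 and 8.44 FPKM in sham and 23.5, 24.4 and 34.4 FPKM in vehicle (1.48 ± 0.21, adjusted p = 0.00436), and Hspa1a, a near-identical copy that can share reads, and Bag3, their partner, changed by 0.59 to 1.14. Hspd1, the mitochondrial chaperone HSP60, fell, at 262, 302 and 338 FPKM in sham and 181, 195 and 84.9 FPKM in vehicle (-1.34 ± 0.35, adjusted p = 0.0435). Hspa8, the most abundant chaperone in sham, did not pass (adjusted p = 0.829). With 1 library left out at a time, Hspd1 missed the threshold at least once, with a highest adjusted p of 0.125, without sham library 3, and Hspb1, Hspa1b, Hspa1a and Bag3 passed in all of these fits.

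Unfolded protein and integrated stress response genes rose in 14 of 29 members (median change 0.20) and fell in 2, 48.3% and 6.9% against 31.3% and 5.42% of all genes. The rises were 5 in all 4 scalings and ran from 4 (without sham library 2 or sham library 3) to 18 with 1 library left out. Cebpb, a stress and inflammation factor, was at 1.03, 1.72 and 1.17 FPKM in sham and 8.53, 10.9 and 11 FPKM in vehicle (1.98 ± 0.19, adjusted p = 0.00149). Ddit4, an inhibitor of mTOR, was at 9.12, 8.29 and 7.62 FPKM in sham and 35.8, 37 and 25.7 FPKM in vehicle (1.54 ± 0.28, adjusted p = 0.00753). Atf5 and Mthfd2, a mitochondrial folate enzyme, changed by 0.50 to 0.84. Shmt2, another mitochondrial folate enzyme, and Edem1, of protein disposal, changed by -1.23 ± 0.32, adjusted p = 0.0446 and -0.74 ± 0.14, adjusted p = 0.0356. Pdia3, the most abundant of the list in sham, did not pass (adjusted p = 0.911). When single libraries were left out, Shmt2 and Edem1 missed the threshold at least once, with a highest adjusted p of 0.111 to 0.136, without vehicle library 3 for Shmt2 and without sham library 3 for Edem1, and Cebpb, Ddit4, Atf5 and Mthfd2 passed in all of these fits. Of these calls, scaling removed Edem1 under equal FPKM sums.

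Targets of the hypoxia-inducible factors rose in 6 of 19 (median change -0.02), near the share of all genes, 3 in all 4 scalings and from 3 (without sham library 2 or sham library 3) to 8 with 1 library left out. Slc2a1, the glucose carrier GLUT1, was at 12.5, 9.47 and 11.3 FPKM in sham and 25.9, 16.3 and 22.7 FPKM in vehicle (0.59 ± 0.20, adjusted p = 0.0142), and Ldha, lactate dehydrogenase, did not pass (adjusted p = 0.898). Glycolysis enzymes rose in 9 of 19 (median change 0.11), 47.4% against 31.3% of all genes. The rises were 5 in all 4 scalings and ran from 2 (without sham library 2 or sham library 3) to 8 with 1 library left out. Hk2, hexokinase 2, was at 0.151, 0.605 and 0.0698 FPKM in sham and 3.84, 0.819 and 4.96 FPKM in vehicle (1.28 ± 0.42, adjusted p = 0.0222), Pfkp, a phosphofructokinase, at 4.81, 3.9 and 4.84 FPKM in sham and 11.2, 9.9 and 10.7 FPKM in vehicle (0.78 ± 0.14, adjusted p = 0.00622), and Pklr, pyruvate kinase, changed by 1.02 ± 0.23, adjusted p = 0.00906. Ldhb, the most abundant by the deposited values, did not pass (adjusted p = 0.157). Gapdh, which most cells express strongly, was at only 4.71, 4.9 and 29.5 FPKM in sham and 5.76, 5.48 and 4.74 FPKM in vehicle and did not pass (adjusted p = 0.344); whether reads shared with its pseudogenes lowered it was not tested, and the order of abundance in the list is uncertain. Over the 9 fits that each left out 1 library, Slc2a1 and Hk2 missed the threshold at least once, with a highest adjusted p of 0.0605 to 0.0769, without sham library 2 for Slc2a1 and without sham library 3 for Hk2, and Pfkp and Pklr passed in all of these fits.

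NRF2 targets, the antioxidant genes, rose in 8 of 23 (median change 0.05), near the share of all genes, 4 in all 4 scalings and from 4 (without sham library 2 or sham library 3) to 9 with 1 library left out. Cbr3, a carbonyl reductase, was at 0.695, 0.555 and 0.688 FPKM in sham and 8.93, 6.27 and 8.7 FPKM in vehicle (2.14 ± 0.19, adjusted p = 0.00149). Hmox1, heme oxygenase, was at 17.8, 18.8 and 19 FPKM in sham and 36.7, 45.5 and 34.3 FPKM in vehicle (0.72 ± 0.17, adjusted p = 0.00837), and Pgd, of the pentose phosphate pathway, changed by 0.62 ± 0.14, adjusted p = 0.00753. Fth1, ferritin heavy chain, was at 1393, 1187 and 1376 FPKM in sham and 927, 1505 and 939 FPKM in vehicle with overlapping groups (adjusted p = 0.491). Of metal handling genes 5 of 14 (median change 0.14) rose, also near that share, 3 in all 4 scalings and from 2 (without sham library 3) to 6 with 1 library left out. Mt1, metallothionein, was at 58.4, 39.6 and 54.8 FPKM in sham and 166, 105 and 128 FPKM in vehicle (1.06 ± 0.33, adjusted p = 0.0171), and Slc40a1, the iron exporter ferroportin, changed by 0.70 ± 0.18, adjusted p = 0.01. Trf, transferrin, which fat also makes, rose with overlapping groups (1.73 ± 0.62, adjusted p = 0.0328). Slc39a8, a zinc and manganese importer, fell, at 10.8, 8.83 and 8.89 FPKM in sham and 3.97, 5.35 and 1.78 FPKM in vehicle (-1.53 ± 0.41, adjusted p = 0.0426). In fits that each dropped 1 library, Mt1, Trf and Slc39a8 missed the threshold at least once, with a highest adjusted p of 0.0684 to 0.14, without sham library 2 for Mt1, without sham library 3 for Trf and without vehicle library 3 for Slc39a8, and Cbr3, Hmox1, Pgd and Slc40a1 passed in all of these fits. Not called after rescaling were Hmox1 under median-ratio scaling and Trf under median-ratio scaling and quantile normalization.

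Of the subunits of the proteasome, which degrades tagged proteins, 8 of 33 (median change -0.11) rose, 24.2% against 31.3% of all genes, from 2 (without sham library 2 or sham library 3) to 9 with 1 library left out. The 5 that rose in all 4 scalings were Psmb8, Psmb9, Psmb10, Psme1 and Psme2, the interferon-induced catalytic subunits and activator. Psmb10 was at 6.05, 4.65 and 4.48 FPKM in sham and 20.7, 15.5 and 37.1 FPKM in vehicle (1.69 ± 0.32, adjusted p = 0.00819), Psmb8 at 1.64, 1.21 and 0.914 FPKM in sham and 5.12, 3.27 and 8.32 FPKM in vehicle (1.19 ± 0.29, adjusted p = 0.011), and Psmb9, Psme1 and Psme2 changed by 0.71 to 0.80. Psmb5, the constitutive counterpart of Psmb8 and the most abundant subunit in sham, was at 88.3, 72.1 and 90.9 FPKM in sham and 89.7, 111 and 89.8 FPKM in vehicle (adjusted p = 0.281). Psmd14, of the regulatory cap, fell slightly (-0.67 ± 0.11, adjusted p = 0.0336). It was the only subunit that fell, whereas 7 fell after median-ratio scaling and 5 after quantile normalization. Dropping 1 library at a time ended the calls of Psmb9, Psme1, Psme2 and Psmd14 in at least 1 of 9 fits, with a highest adjusted p of 0.0545 to 0.136, without sham library 3 for Psmb9 and Psmd14 and without sham library 2 for Psme1 and Psme2, and Psmb10 and Psmb8 passed in all of these fits. The call of Psmd14 under equal FPKM sums was lost.

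Of genes for cholesterol and fatty acid synthesis, 7 of 27 (median change -0.29) rose and 4 fell. These are 25.9% and 14.8% against 31.3% and 5.42% of all genes, with 2 and 3 in all 4 scalings. The rises ran from 2 (without sham library 3) to 9 with 1 library left out. Cyp51, a sterol demethylase, was at 73.8, 57.2 and 66.3 FPKM in sham and 23.4, 34.5 and 11.3 FPKM in vehicle (-1.89 ± 0.43, adjusted p = 0.0229), and Idi1 and Sc5d, also of sterol synthesis, changed by -1.69 to -0.90. Fdft1, squalene synthase, and Srebf1, a lipid-synthesis factor, rose by 0.40 to 0.43. Hmgcs1, the most abundant, did not pass (-0.78 ± 0.27, adjusted p = 0.168). Removal of 1 library ended the calls of Cyp51, Idi1, Sc5d and Srebf1, with a highest adjusted p of 0.0576 to 0.0717, without sham library 3 for Cyp51, Idi1 and Srebf1 and without sham library 2 for Sc5d, and Fdft1 passed in all of these fits. Another scaling ended the call of Srebf1 under median-ratio scaling and quantile normalization.

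Genes of regulated cell death rose in 18 of 26 (median change 0.47), 12 in all 4 scalings and from 5 (without sham library 2) to 22 with 1 library left out. Pmaip1, the pro-apoptotic NOXA, was at 2.14, 3.42 and 2.57 FPKM in sham and 21.9, 10.8 and 35.1 FPKM in vehicle (2.25 ± 0.41, adjusted p = 0.0082). Casp4, the caspase-11 of pyroptosis, was at 0.496, 0.336 and 0.279 FPKM in sham and 6.01, 2.39 and 6.29 FPKM in vehicle (1.73 ± 0.34, adjusted p = 0.00878). Bak1, which opens the mitochondrial outer membrane, changed by 1.23 ± 0.23, adjusted p = 0.00753, and the survival genes Birc3 and Mcl1 by 0.86 to 1.96, so that members with opposed functions rose together. Circadian genes rose in 6 of 18 (median change -0.13), near the share of all genes, 5 in all 4 scalings and from 4 (without sham library 2) to 8 with 1 library left out, and fell in 2, neither in all 4 scalings. Cry1 was at 0.681, 0.482 and 0.275 FPKM in sham and 4.61, 1.81 and 4.86 FPKM in vehicle (1.32 ± 0.28, adjusted p = 0.00878), and Nfil3 and Per2 changed by 0.85 to 1.43. Nr1d1, the repressor REV-ERB-alpha, was at 31.8, 35.5 and 24.6 FPKM in sham and 9.42, 19.3 and 20.3 FPKM in vehicle (-1.22 ± 0.30, adjusted p = 0.0412), and Tef, an output factor, changed by -0.75 ± 0.14, adjusted p = 0.0361. The labels do not give the time of day at which tissue was taken. The calls of Mcl1, Nr1d1 and Tef did not hold with every library left out in turn, and the highest adjusted p was 0.0594 to 0.127, without sham library 2 for Mcl1 and Nr1d1 and without sham library 1 for Tef, and Pmaip1, Casp4, Bak1, Birc3, Cry1, Nfil3 and Per2 passed in all of these fits. Rescaling ended the calls of Nr1d1 and Tef under equal FPKM sums.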

How the data were processed

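The authors deposited FPKM values per gene for 9 libraries of renal cortex. RNA was extracted with TRIzol, and 1 µg went into a paired-end Abclonal mRNA library kit, per the labels' protocols. Reads were aligned with HISAT2, per the submitters' processing notes, and neither these notes nor the labels name the genome build, annotation or counting tool. The labels spell the compound of the third group TJ013 and the series text TJ0113. The depth per library was derived from the steps between low FPKM values, and no count test was run on them. Genes averaging 0.5 FPKM or more over the 9 libraries were tested with limma 3.58.1 (R 4.3.3) on log2(FPKM + 1), with a variance trend, 1 fit of all 9 libraries and Benjamini-Hochberg adjustment over 15453 genes. The script was checked on simulated data. How reads shared by near-identical genes were counted is unknown, so that values of such copies (Cyp4a12a and Cyp4a12b, Hspa1a and Hspa1b, Gsta1 and Gsta2) and of pseudogenes are uncertain. Of the listed genes, Gapdh was low in the table, and Mt2, S100a4, Tagln and Fdps were too near 0 to be tested. Whether shared reads lowered them was not tested, and counts and ranks in their lists are uncertain.

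The members and lists were chosen with earlier results of these data known. Named genes are the 12 largest changes each way among called genes whose groups did not overlap, the 12 largest gains and losses of FPKM, 10 genes near 0 in every sham library, and 24 fixed genes. In each list they are the 4 members with the smallest p, the most abundant member in sham and members called against the direction of most. Alternatives varied the pseudocount, the filter, the scaling, the libraries in the fit, the variance trend, library weights and a replicate block, and left out each library in turn. Promoter sequences came from RefSeq (GRCm38.p6), and motifs were searched on both strands. Some genes that this rule names are not reported here.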

Additional observations from a re-analysis of the deposited data

How the results depend on the processing

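Higher and lower calls numbered 4839 and 837 as reported. They were 2485 and 448 with no filter on low values, 2454 and 2359 after median-ratio scaling, 2041 and 2320 after quantile normalization and 9932 and 2560 with library weights, whose estimation stopped before convergence, and 1873 and 553 held in all 4 scalings. The median change of all genes was 0.30 as reported, -0.01 after median-ratio scaling, -0.04 after quantile normalization and 0.42 with equal FPKM sums, and the cause of the different calls was not tested beyond this shift. Leaving out each library in turn gave 743 to 7427 higher and 119 to 1362 lower calls, each lowest without sham library 2 and highest without vehicle library 2. The other settings kept both counts within 1.5 times. Of the 297 genes named, 252 passed, 210 of these in all 4 scalings and 130 in all 9 fits with a library left out. Adjusted p was recomputed with a replicate block, although same-numbered sham and vehicle libraries did not deviate together (correlations -0.08, -0.08 and -0.24). Same-numbered vehicle and TJ0113 libraries, which share the fit, correlated at -0.06, 0.50 and 0.56. With the block 5389 genes were higher and 1005 lower, and of the named genes 2 lost and 7 gained their call. The sign relative to the median gene turned for 14 named genes. Under quantile normalization Gpx3 was at 0.088, Hspa8 at 0.11, Il6st at 0.099, Ldha at 0.028, Pdia3 at 0.073, Psmb5 at 0.27, Umod at 0.17, mt-Co1 at 0.41 and mt-Cytb and mt-Nd1 at 0.038. The value of mt-Cytb and mt-Nd1 is the shift of the median gene alone, since that scaling gives equal ranks equal values. It cannot show a loss in genes that keep the top ranks. With library weights Cxcl12 was at 0.32, Il6st at 0.28, Slc26a6 at -0.070 and Umod at 0.19. Eef1a1 was at -0.073 and -0.026 with pseudocounts of 0.1 and 0.5 and at -0.092 after median-ratio scaling, where Ldhb was at -0.00080, and Il6st was at 0.031 with equal FPKM sums. Leaving out libraries moved Eef1a1 from -0.033 to 0.091, Il6st from -0.14 to 0.20, Psmb5 from -0.27 to 0.034 and Umod from -0.58 to 0.25. Of these genes only Slc26a6 passed as reported. The depth implied by the FPKM steps ran from 31.2 to 42.7 M reads over the 9 libraries, and genes near 0 FPKM are limited by the added 1.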

Other observations

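Most called genes were uneven over the 3 vehicle libraries, and the genes that were not form a mixed group. Among the 1332 called genes with at least a 2-fold change, 844 higher and 488 lower, the median range of the 3 vehicle libraries was 1.48 on the log2(FPKM + 1) scale for the higher and 0.94 for the lower. The genes described here were chosen after their values were seen. Besides Fgg, Lrg1, Ephx1, Gsta2 and Anxa13, the most even included Pla2g12b, a secreted phospholipase relative, at 0.115, 0.172 and 0.219 FPKM in sham and 2.51, 2.3 and 2.55 FPKM in vehicle (1.27 ± 0.19, adjusted p = 0.0047). Cox6b2, a cytochrome oxidase subunit known from testis, was at 2.82, 2.24 and 2.28 FPKM in sham and 8.36, 7.1 and 8.74 FPKM in vehicle (1.10 ± 0.18, adjusted p = 0.00534), and A4galt, which makes the glycolipid Gb3, at 7.45, 6.78 and 6.5 FPKM in sham and 22.6, 18.9 and 23.7 FPKM in vehicle (1.22 ± 0.22, adjusted p = 0.00688). Among lower genes, Slc29a3, a nucleoside transporter of lysosomes, was at 22.6, 26.6 and 25 FPKM in sham and 11.8, 12.7 and 12.7 FPKM in vehicle (-1.24 ± 0.15, adjusted p = 0.0082), and Pdpr, which regulates pyruvate dehydrogenase phosphatase, at 7.19, 9.6 and 5.63 FPKM in sham and 3.82, 3.58 and 3.34 FPKM in vehicle (-1.16 ± 0.19, adjusted p = 0.014). Slc25a48, a mitochondrial carrier, was at 12.4, 11.4 and 11.2 FPKM in sham and 5.34, 6.03 and 5.5 FPKM in vehicle (-1.23 ± 0.16, adjusted p = 0.00878). These genes were thus about as far from sham in vehicle library 2 as in the other vehicle libraries.

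In 29 of these 1332 genes vehicle library 2, which for most genes lay nearest to sham, was the farthest from it. They included Socs2, a feedback inhibitor of growth hormone signalling, at 1.16, 1.1 and 1.82 FPKM in sham and 5.59, 6.43 and 4.69 FPKM in vehicle (1.18 ± 0.30, adjusted p = 0.0118). Cyp4a14, Aqp4 and Hsd11b1, described above, were among them too. Leaving out 1 library at a time raised the adjusted p of Socs2 past the threshold, to a highest value of 0.0516, without sham library 2.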
